A study of Mus musculus with 9 samples.

Results

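Livers of Cth knockout mice on plain drinking water were compared with livers of wild type mice on plain drinking water, 3 RNA-seq libraries in each group. These 6 libraries are part of a series of 9, whose other 3 come from betaine-supplemented knockout mice. The labels name the genotype as Cth-deficient without the allele, and they give no strain, age or sex, nor say that each library is a separate animal, so p-values measure only the spread between these libraries, which may be technical. The series asks what the enzyme does in chronic liver disease. Cth encodes cystathionine gamma-lyase. This enzyme cleaves cystathionine to cysteine, the last step by which the liver turns methionine into cysteine, and it also produces hydrogen sulfide. Homocysteine upstream of it is remethylated to methionine by folate-dependent and betaine-dependent enzymes, and cysteine downstream of it feeds glutathione, taurine and sulfate.

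The deposited values are FPKM, fragments per kilobase of exon and per mapped total, for 54532 genes. Of these, 30249 were at 0 in all 6 libraries and 11923 had a mean of at least 0.5 FPKM and were tested on log2(FPKM + 0.5), a scale that understates the change of low genes. Reads recovered from the FPKM came to 15184982 to 17473962 per library, and 3 reads in a 1 kb transcript are worth 0.166 to 0.222 FPKM (counting error only). All 12 hepatocyte markers examined, among them Alb, Cps1 and Hnf4a, were present in every library, at 107 to 51130 FPKM. Wild type replicate 3 stood apart: it alone held Xist, at 26.6 FPKM, and no read of the Y chromosome genes Uty, Kdm5d, Ddx3y and Eif2s3y, which together had 1512 to 1927 reads in each of the other 5 libraries. Mup20 measured 55.3 FPKM in it and 1991 to 4724 FPKM elsewhere, and Cyp2b9 measured 215 FPKM in it and at most 1.05 FPKM elsewhere. Counts of called genes are therefore given also without this library.

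A gene was called when its Benjamini-Hochberg adjusted p in limma, over all genes tested, was below 0.05, and the words rose and fell are used only of called genes. In the 6 libraries 2893 genes (24.3%) were called, 1451 up (12.2%) and 1442 down (12.1%), while 4765 reached an unadjusted p below 0.05. Without wild type replicate 3 the number was 3415 (28.6%), of which 2636 were called the same way in both fits and 0 the opposite way. FPKM of the groups did not overlap for 5563 genes (46.7%), all called genes included. Other left-out libraries lowered the number. Dropping knockout replicate 2 left 688 calls, knockout replicate 3 left 1374, and wild type replicate 1 left 1437. Dropping knockout replicate 1 left 1717. Of the 2893 genes, 657 kept their call in all 6 such fits. Rescaled to TPM, the median of all genes moved to -0.36 and 4347 genes passed, 568 of them higher. On each library's own read total 3185 passed, 1117 higher. The balance of rises and falls therefore belongs to the deposited scaling.

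Cth itself (chromosome 3, bases 157894248 to 157925077, minus strand, GRCm38) had 285, 257 and 219 FPKM in the wild type libraries and 0.583, 0.278 and 0.77 FPKM in the knockout libraries (log2 fold change -7.95 ± 0.20 SE, adjusted p = 2.33e-05). In reads these were 12546, 10949 and 11055 against 22, 11 and 32, so every knockout library matched its label. The call held in every alternative run.

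Fold changes followed transcript length. Across 11920 genes with an exon length, the Spearman correlation of the log2 fold change with length was -0.462, and -0.435 without wild type replicate 3 (genes are not independent replicates). Of the 3973 genes of up to 2645 bases 915 rose and 115 fell, with a median log2 fold change of 0.36. Of the 3974 genes above 5224 bases 131 rose and 919 fell, with a median of -0.25. With each library's own trend on exon length removed the medians of these classes were 0.039 and 0.00080, and 1972 genes (16.5%) were called, 1005 higher (8.43%) and 967 lower (8.11%). With the trend removed and wild type replicate 3 left out, 2491 (20.9%) were called. The calls common to these 4 fits, with the same direction, numbered 1432, 710 higher (5.95%) and 722 lower (6.06%), and they are named below as calls in all 4 fits. These too rest on single libraries: with the trend removed, 26 genes passed when knockout replicate 2 was dropped and 219 when knockout replicate 3 was. Dropping wild type replicate 1 left 311, knockout replicate 1 left 819, and wild type replicate 2 left 1017. What part of the fold changes of long and short genes comes from library or RNA quality was not tested. For the gene lists below, median log2 fold changes are given in the order 6 libraries, without wild type replicate 3, and length trend removed. Over all genes they were 0.02, 0.00 and 0.02. List counts stand beside the share of all genes, 12.2% higher and 12.1% lower in the 6 libraries. Without wild type replicate 3 that share was 14.1% and 14.6%. Unless stated, calls kept or lost with 1 library left out are from fits with the length trend not removed. List counts from those fits are given only where they moved further, and not for every list.

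**Figure D1:**
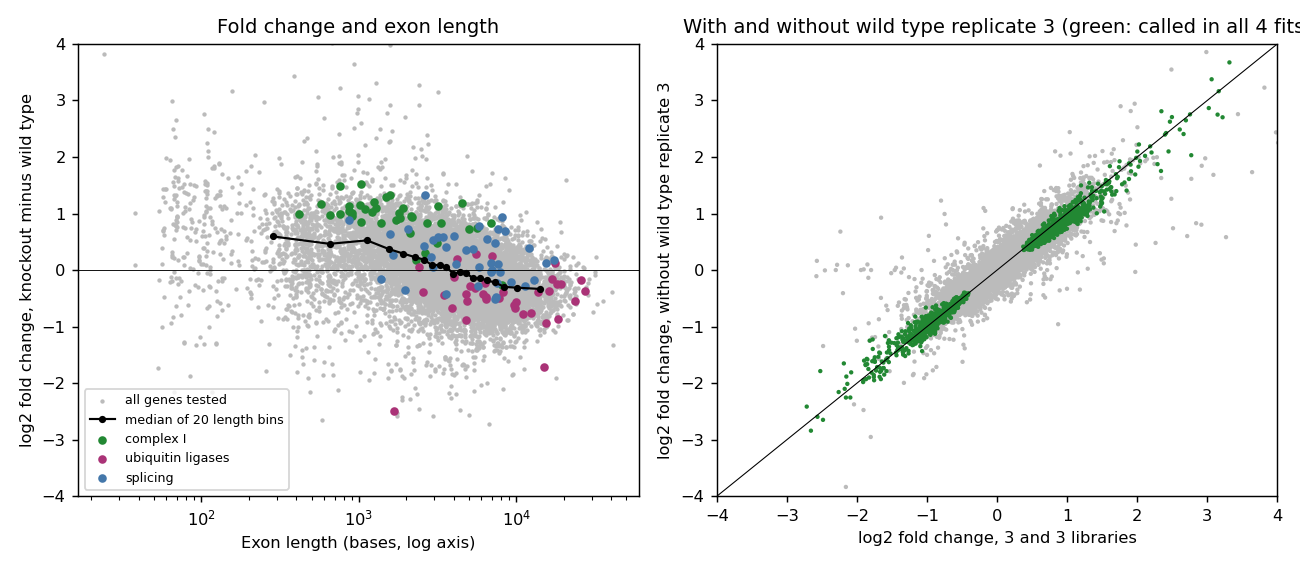
Left, log2 fold change of each tested gene (knockout minus wild type, 6 libraries) against its exon length in bases on a log axis, with the median of 20 length bins as a line and 3 gene lists coloured. The line falls from short to long genes, and complex I genes lie above it. Right, log2 fold change in the 6 libraries against that without wild type replicate 3, with the 1432 genes called in all 4 fits in green and the line of equality. In each panel 11 genes beyond 4 log2 units are not drawn.

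Among genes with an established symbol (predicted models and pseudogenes left out), 12 were named as the largest falls after Cth. Gpam, the mitochondrial acyltransferase that starts triglyceride synthesis, had 23.5, 18.7 and 39.7 FPKM in wild type against 3.67, 2.3 and 5.06 FPKM in the knockout (log2 fold change -2.72 ± 0.34 SE, adjusted p = 0.00693). Pdpr, the regulatory subunit of pyruvate dehydrogenase phosphatase, had 5.76, 4.38 and 4.67 FPKM in wild type and 0.353, 0.364 and 0.534 in the knockout (-2.57 ± 0.16, adjusted p = 0.00237). In all 12 falls the groups did not overlap, which the rule for naming them required. Ppara, the nuclear receptor for fatty acids that drives the fasting programme of the liver, had 28.4, 19.9 and 29.6 FPKM in the wild type libraries and 3.78, 5.22 and 6.07 FPKM in the knockout libraries (-2.26 ± 0.22, adjusted p = 0.00676). Rnf125, a ubiquitin ligase, had 133, 63.7 and 65.3 FPKM in wild type against 17.4, 10.7 and 15.5 FPKM in the knockout (-2.49 ± 0.32, adjusted p = 0.00712). Arf6, a small GTPase of endocytic recycling, had 21.9, 22.9 and 20.5 FPKM in wild type and 5.74, 5.15 and 5.43 in the knockout (-1.91 ± 0.11, adjusted p = 0.00237), with the smallest error among the 12 largest falls. The fall of Ndst1, which sulfates heparan chains, was of similar size, at 32.9, 27.7 and 21.5 FPKM in the wild type libraries and 7.02, 4.41 and 6.69 FPKM in the knockout libraries (-2.10 ± 0.22, adjusted p = 0.00676). Sacm1l, a phosphoinositide phosphatase, had 10.4, 7.56 and 10.4 FPKM in wild type against 2.28, 0.943 and 2.1 FPKM in the knockout (log2 fold change -2.18 ± 0.27). Klf9, a transcription factor induced by glucocorticoid and thyroid hormone, had 40.9, 27.5 and 62.7 FPKM in wild type and 13.6, 8.68 and 10.4 in the knockout (-1.90 ± 0.31). The other 4 of the 12 were Abca6 (-2.14 ± 0.23), a lipid transporter, Slc3a1 (-2.08 ± 0.31), the cystine and basic amino acid transporter subunit, Acnat2 (-2.53 ± 0.63), an acyltransferase of peroxisomes, and Ptp4a1 (-2.19 ± 0.46), a tyrosine phosphatase. All 12 were called in all 4 fits. Wild type replicate 3 was the highest library for Acnat2, at 102 FPKM against 25.6 and 18.1 in the other wild type libraries, and for Ptp4a1, at 6.03 FPKM against 2.14 and 1.23. Gpam, Pdpr, Ppara, Rnf125, Arf6, Ndst1, Sacm1l, Klf9, Abca6 and Slc3a1 kept their calls whichever library was left out. Acnat2 (-2.77) and Ptp4a1 (-2.30) lost their calls without wild type replicate 1. Acnat2 (-2.74) lost its call without knockout replicate 1. Acnat2 (-2.36) and Ptp4a1 (-2.14) lost their calls without knockout replicate 2. Acnat2 (-2.47) and Ptp4a1 (-2.15) lost their calls without knockout replicate 3.

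The 12 largest rises by the same rule included transcripts of very few reads. Sult2a7, a bile acid and steroid sulfotransferase, had 0.397, 0.614 and 1.6 FPKM in the wild type libraries and 10.9, 15.8 and 10.7 FPKM in the knockout libraries (log2 fold change 3.32 ± 0.33 SE, adjusted p = 0.00676), or 57 reads in all in wild type against 678 in the knockout. Phlda1, a pleckstrin-homology protein linked to apoptosis and growth factor signals, had 7.26, 5.34 and 6.27 FPKM in wild type against 34.4, 40.2 and 19.8 FPKM in the knockout (2.19 ± 0.27, adjusted p = 0.00676). Mup16, a major urinary protein, had 137, 105 and 93.1 FPKM in wild type and 531, 691 and 834 in the knockout (2.61 ± 0.22, adjusted p = 0.00676). The groups did not overlap in any of the 12 rises, again because the rule required it. Cenpm, a centromere protein, had 0.236, 0 and 0.342 FPKM in the wild type libraries and 2.47, 3.97 and 3.45 FPKM in the knockout libraries (2.47 ± 0.25, adjusted p = 0.00676), from 16 and 228 reads. Moxd1, a monooxygenase related to dopamine beta-hydroxylase, had 1.47, 0.164 and 0 FPKM in wild type against 9.19, 3.15 and 12.4 FPKM in the knockout (3.15 ± 0.65, adjusted p = 0.0195), and Hist1h4h, a replication-dependent histone H4 gene, 6.21, 5.01 and 1.29 FPKM in wild type and 15.9, 24.6 and 20.4 in the knockout (2.34 ± 0.49, adjusted p = 0.0195). In both genes the wild type libraries spread widely, with replicate 3 lowest. Mup9 (2.77 ± 0.62) and Mup19 (4.31 ± 1.07) followed wild type replicate 3 in part: their log2 fold changes without it were 2.03 and 3.91, and Mup19 was not called once the length trend was removed. The size of the Mup19 change depended on knockout replicate 1, at 680 FPKM against 44.1 and 61.2 FPKM in the other knockout libraries. With that library left out its log2 fold change was 3.08 and its call held. The remaining 4 genes had too few reads to size a change. Wild type and knockout totals were 2 and 16 reads for the hairpin of the liver microRNA Mir122, 2 and 21 for Mir1192, 1 and 12 for mt-Tv, a mitochondrial transfer RNA, and 1 and 9 for Snord73a, a small nucleolar RNA. The libraries were made from poly-T selected RNA, so the values of such short RNAs are no measure of their mature forms. Reads of near-identical copies in the Mup and Sult2a families can be counted for one another. The calls of Sult2a7, Phlda1, Mup16 and Cenpm held whichever library was left out. Mup19 (4.62) lost its call without wild type replicate 1. Moxd1 (2.95) and Mup19 (4.41) lost their calls without wild type replicate 2. Moxd1 (2.98) and Mup9 (2.71) lost their calls without knockout replicate 1. Hist1h4h (2.19), Mup9 (2.77) and Mup19 (5.05) lost their calls without knockout replicate 2. Moxd1 (2.78), Hist1h4h (2.33), Mup9 (2.84) and Mup19 (4.81) lost their calls without knockout replicate 3.

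**Figure D2:**
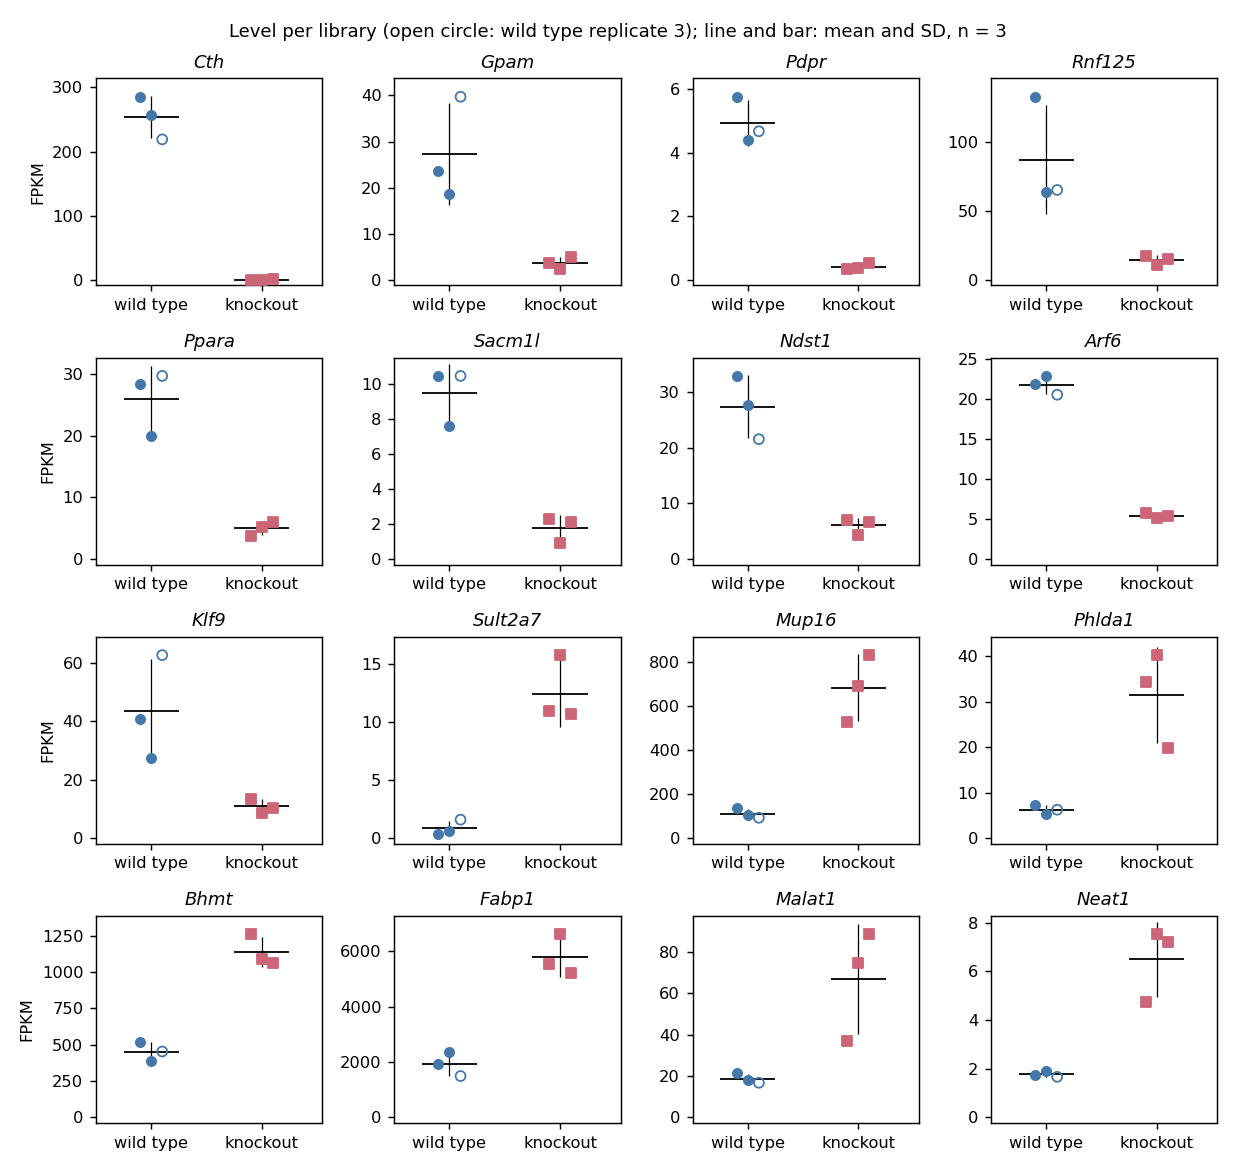
FPKM of 16 genes in the 3 wild type libraries (circles, replicate 3 open) and the 3 Cth knockout libraries (squares), with mean and SD of each group (n = 3) and an axis of its own per gene. The 2 groups do not overlap in any of the 16 genes, as in all called genes. Cth is at 0.278 to 0.770 FPKM in the knockout, and wild type replicate 3 is the highest wild type library for Gpam and Klf9.

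Of 15 tested genes of sulfur amino acid and hydrogen sulfide metabolism 4 rose and 1 fell, the fall being Cth; the counts were 3 and 3 without wild type replicate 3, 2 and 1 with the length trend removed and 2 and 1 in all 4 fits. Tst, thiosulfate sulfurtransferase of the mitochondrion, had 61, 57.8 and 59 FPKM in the wild type libraries and 99.5, 97.7 and 103 FPKM in the knockout libraries (log2 fold change 0.75 ± 0.11 SE, adjusted p = 0.00799). Mpst, which makes hydrogen sulfide from 3-mercaptopyruvate, had 47.8, 39.1 and 34 FPKM in wild type against 69, 75.2 and 72.4 FPKM in the knockout (0.85 ± 0.15, adjusted p = 0.0121). Ethe1, the persulfide dioxygenase that removes sulfide, had 56.8, 52.8 and 30.1 FPKM in wild type and 92, 95.9 and 91.2 in the knockout (1.04 ± 0.24, adjusted p = 0.0235), and its call was lost in the 6 libraries with the length trend removed. In all of these each knockout library lay above each wild type library. The fourth rise, Tstd1 (0.87 ± 0.25), was called in the 6-library fit and in none of the other 3 fits. Cbs and the other members did not pass. Of the sulfur amino acid genes, 3 and 2 passed without knockout replicate 1 and knockout replicate 2, respectively. Tst kept its call whichever library was left out. Tstd1 (0.96) lost its call without wild type replicate 1. Tstd1 (0.87) lost its call without wild type replicate 2. Tstd1 (0.77) lost its call without wild type replicate 3. Ethe1 (1.05) and Tstd1 (0.79) lost their calls without knockout replicate 1. Mpst (0.82), Ethe1 (1.02) and Tstd1 (0.68) lost their calls without knockout replicate 2. Ethe1 (1.06) lost its call without knockout replicate 3.

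Among 25 genes of the methionine cycle, betaine use and S-adenosylmethionine consumption 4 rose and 3 fell, 4 and 4 without wild type replicate 3 and 3 and 3 in all 4 fits. Bhmt, betaine-homocysteine methyltransferase, had 520.3, 385 and 454 FPKM in the wild type libraries and 1261, 1091 and 1065 FPKM in the knockout libraries (log2 fold change 1.34 ± 0.16 SE, adjusted p = 0.00676). Gnmt, the glycine N-methyltransferase that disposes of excess S-adenosylmethionine, went the other way with 1530.0, 1209 and 1267 FPKM in wild type against 833, 583 and 697 FPKM in the knockout (-0.93 ± 0.18, adjusted p = 0.0144). The knockout libraries thus held more transcript of the betaine-dependent enzyme of homocysteine remethylation and less of that of the abundant methyl group consumer Gnmt, with no overlap of the groups in either. Gamt, which methylates guanidinoacetate to creatine, had 72.1, 58.8 and 83.6 FPKM in wild type and 153, 176 and 136 in the knockout (1.12 ± 0.17), and Apip, of the methionine salvage pathway, 8, 8.11 and 6.63 FPKM in the wild type libraries and 17.2, 15.2 and 17 FPKM in the knockout libraries (1.07 ± 0.12). Amd1, the decarboxylase that commits S-adenosylmethionine to polyamines, had 8.71, 10.3 and 10.9 FPKM in wild type against 6.41, 5.75 and 5.33 FPKM in the knockout (-0.72 ± 0.13). Of 19 folate, serine and glycine genes 0 rose and 1 fell in limma, the fall being Gldc, of the glycine cleavage system, at 79.7, 58.3 and 71 FPKM in wild type and 47.8, 44.2 and 50.6 in the knockout (-0.54 ± 0.15, adjusted p = 0.04). The list gave 2 and 2 without wild type replicate 3, 0 and 0 with the length trend removed and 0 and 0 in all 4 fits, the call of Gldc being lost once the length trend was removed. Of the methyl group genes, 3 and 4 passed without knockout replicate 2 and knockout replicate 3, respectively. The calls of Bhmt, Gamt and Apip held whichever library was left out. Gnmt (-0.83) and Gldc (-0.44) lost their calls without wild type replicate 1. Gldc (-0.54) lost its call without knockout replicate 1. Gnmt (-0.80), Amd1 (-0.71) and Gldc (-0.49) lost their calls without knockout replicate 2. Gnmt (-0.93) and Gldc (-0.58) lost their calls without knockout replicate 3.

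Phosphatidylcholine synthesis, a large methyl group consumer of the liver, had the enzyme that makes CDP-choline lower and its methyltransferase higher. Pcyt1a, the CDP-choline enzyme, had 11.6, 9.22 and 8.14 FPKM in the wild type libraries and 4.26, 2.58 and 3.71 FPKM in the knockout libraries (log2 fold change -1.35 ± 0.20 SE, adjusted p = 0.00881). Etnk1, ethanolamine kinase, had 7.88, 7.87 and 6.58 FPKM in wild type against 3.22, 2.76 and 3.28 FPKM in the knockout (-1.15 ± 0.13, adjusted p = 0.00676). Pemt, which methylates phosphatidylethanolamine to phosphatidylcholine, had 125, 135 and 116 FPKM in wild type and 165, 178 and 172 in the knockout (0.46 ± 0.12, adjusted p = 0.0335), a call that was lost with the length trend removed. These 3 were the called members of 19, and Pcyt1a and Etnk1 were called in all 4 fits. The list gave 1 and 3 without wild type replicate 3. Of the phospholipid genes, 5 passed without wild type replicate 2. Pcyt1a and Etnk1 kept their calls whichever library was left out. Pemt (0.46) lost its call without wild type replicate 1. Pemt (0.48) lost its call without knockout replicate 1. Pemt (0.43) lost its call without knockout replicate 2. Pemt (0.45) lost its call without knockout replicate 3.

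Called glutathione S-transferases, which join glutathione to electrophiles, were mostly higher. With the length trend removed and wild type replicate 3 left out, 9 were called higher and 1 lower. Of 22 tested genes 10 rose and 0 fell, 13 and 0 without wild type replicate 3, 5 and 0 with the length trend removed and 4 and 0 in all 4 fits, with medians of 0.71, 0.74 and 0.38. Gstt2 had 5.48, 4.75 and 4.32 FPKM in the wild type libraries and 10.1, 10.5 and 13 FPKM in the knockout libraries (log2 fold change 1.13 ± 0.14 SE, adjusted p = 0.00693). Gstp3 had 10.8, 11.8 and 14.3 FPKM in wild type against 23.7, 28.3 and 25.4 FPKM in the knockout (1.04 ± 0.14, adjusted p = 0.00745) and Gstm6 37.3, 32.2 and 32 FPKM in wild type and 63.3, 83.2 and 68.6 in the knockout (1.07 ± 0.14, adjusted p = 0.0075). For each of these the lowest knockout library exceeded the highest wild type library by more than the wild type spread. Gstk1, a mitochondrial member, had 61.5, 62.7 and 57.2 FPKM in the wild type libraries and 96.9, 110.3 and 94.4 FPKM in the knockout libraries (0.73 ± 0.12). Near-identical Gstm and Gstp copies can share reads. The median exon length of the glutathione S-transferases was 1538 bases, in the short class. In the wider list of glutathione, thioredoxin and NRF2 target genes 9 of 40 rose and 2 fell, 13 and 5 without wild type replicate 3, 8 and 1 with the length trend removed and 6 and 1 in all 4 fits, with medians of 0.28, 0.29 and 0.15 and -0.12 under TPM, which is 0.24 above the median of all genes. Its rises included Taldo1, transaldolase of the pentose phosphate pathway, at 48.3, 45.5 and 38.6 FPKM in wild type against 75.5, 81.3 and 77.9 FPKM in the knockout (0.82 ± 0.13), Tkt, transketolase (0.51 ± 0.10), and the thioredoxins Txn1 (0.78 ± 0.14) and Txn2 (0.74 ± 0.15). Abcc3, a basolateral efflux pump for conjugates, had 47.6, 45.4 and 48.1 FPKM in wild type and 23.9, 24.2 and 30.4 in the knockout (-0.84 ± 0.13), the reverse direction. Of the glutathione S-transferases, 5, 6, 3 and 5 passed without wild type replicate 1, knockout replicate 1, knockout replicate 2 and knockout replicate 3, respectively. Of the glutathione, thioredoxin and NRF2 genes, 7, 3, 2 and 3 passed without wild type replicate 1, knockout replicate 1, knockout replicate 2 and knockout replicate 3, respectively. The calls of Gstt2, Gstp3, Gstm6, Taldo1 and Abcc3 held whichever library was left out. Tkt (0.51) and Txn2 (0.74) lost their calls without knockout replicate 1. Gstk1 (0.66), Tkt (0.52), Txn1 (0.74) and Txn2 (0.75) lost their calls without knockout replicate 2. Tkt (0.51) and Txn2 (0.75) lost their calls without knockout replicate 3.

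**Figure D3:**
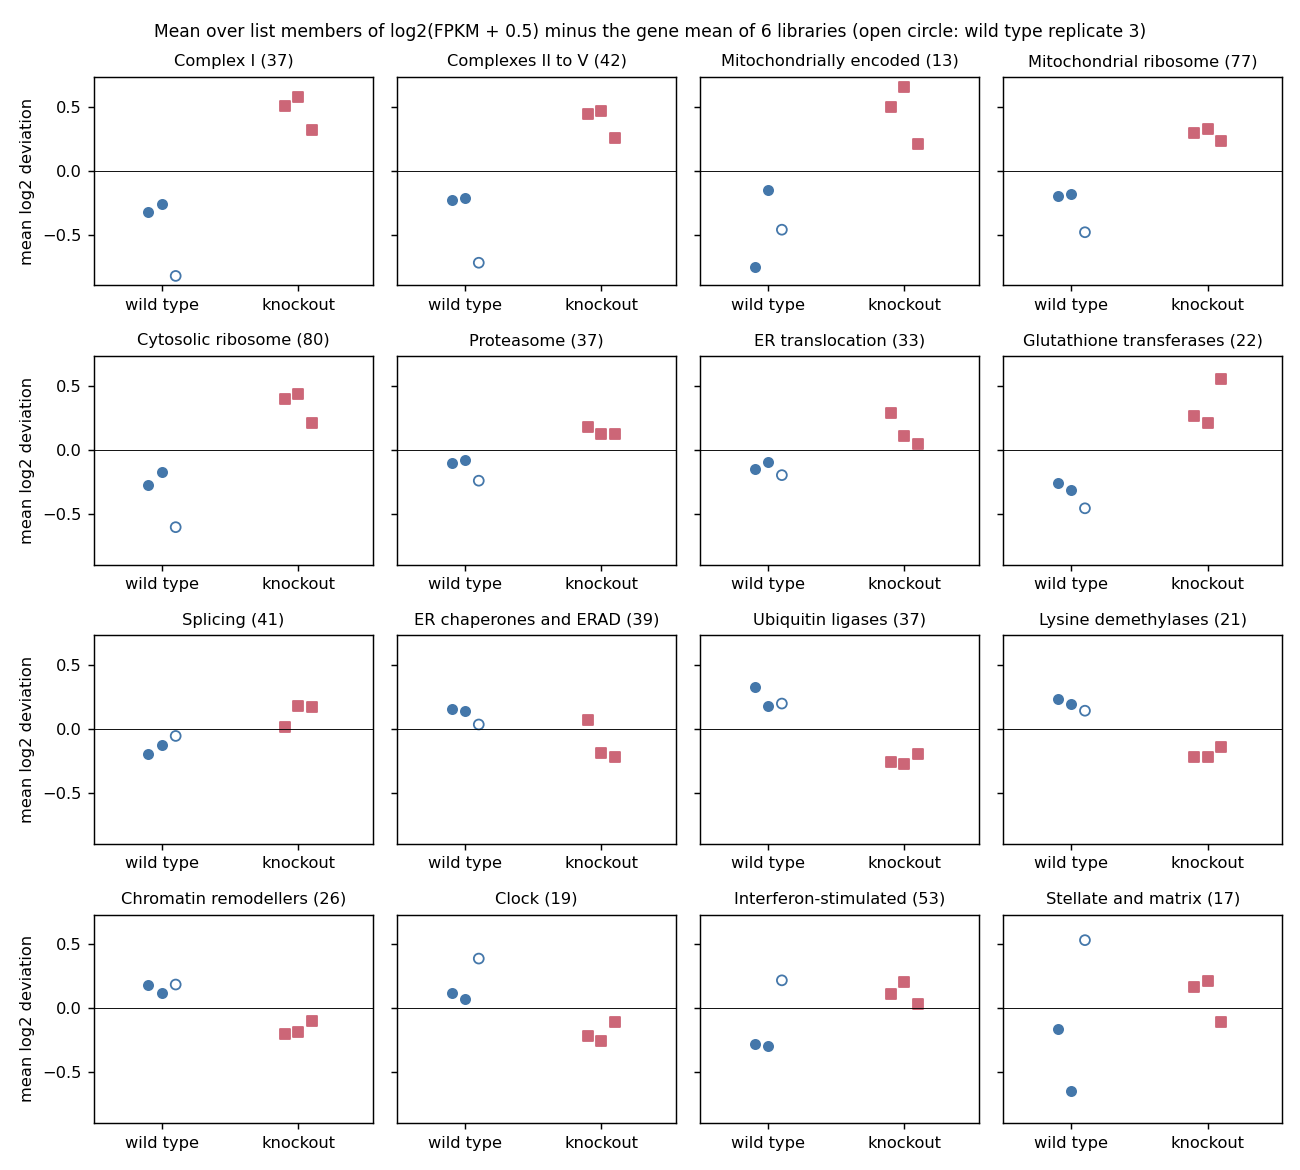
Mean over list members of log2(FPKM + 0.5) minus the gene's mean over the 6 libraries, for 16 gene lists (tested members in parentheses) in wild type (circles, replicate 3 open) and Cth knockout libraries (squares). In the 5 panels of respiratory chain, mitochondrial ribosome and cytosolic ribosome lists the 3 knockout libraries lie above the 3 wild type libraries, and for ubiquitin ligases, demethylases and remodellers they lie lower.

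The nuclear receptor Ppara fell without a uniform move of its known targets. Among 31 genes of its axis outside beta-oxidation 4 rose and 7 fell, 5 and 9 without wild type replicate 3, 2 and 4 with the length trend removed and 2 and 4 in all 4 fits, with medians of -0.16, -0.09 and -0.19. Fabp1, liver fatty acid binding protein and a classical target, had 1922, 2375 and 1492 FPKM in the wild type libraries and 5540.3, 6605 and 5217 FPKM in the knockout libraries (log2 fold change 1.60 ± 0.20 SE, adjusted p = 0.00691). Vnn1, the pantetheinase that is likewise a target, had 6.57, 7.36 and 7.05 FPKM in wild type against 12.7, 21.7 and 17.3 FPKM in the knockout (1.21 ± 0.19, adjusted p = 0.00931). Both were higher in each knockout library although the receptor transcript was lower. Fads2, a desaturase of polyunsaturated fatty acids, had 147, 162 and 179 FPKM in wild type and 90.7, 71 and 84.8 in the knockout (-0.99 ± 0.15, adjusted p = 0.00864), and Ncoa2, a coactivator of nuclear receptors, 3.52, 3.47 and 3.83 FPKM in the wild type libraries and 1.88, 1.83 and 1.88 FPKM in the knockout libraries (-0.80 ± 0.11). Of 39 enzymes of fatty acid oxidation and ketogenesis 3 rose and 6 fell, 5 and 9 without wild type replicate 3 and 2 and 4 in all 4 fits. Cpt1a, which admits long-chain acyl groups to mitochondria, had 99, 80.7 and 79 FPKM in wild type against 43.6, 46.1 and 47.2 FPKM in the knockout (-0.90 ± 0.13, adjusted p = 0.00815). Acad11, an acyl-CoA dehydrogenase, had 28.8, 29.2 and 24 FPKM in wild type and 13.7, 14 and 15.1 in the knockout (-0.91 ± 0.12), and Acadvl, the very long chain dehydrogenase, 72.4, 78.1 and 55 FPKM in the wild type libraries and 43.6, 28.8 and 40.5 FPKM in the knockout libraries (-0.86 ± 0.21). Members were called in both directions, as were all genes tested, of which 12.2% rose and 12.1% fell. Etfb, the electron carrier of these dehydrogenases, had 24.9, 23.8 and 12.3 FPKM in wild type against 57.1, 61.9 and 47.8 FPKM in the knockout (1.49 ± 0.28). Eci1, which isomerizes unsaturated intermediates, had 90.0, 94.4 and 63.7 FPKM in wild type and 155, 161 and 152 in the knockout (0.93 ± 0.17). Of the Ppara axis genes, 5 and 6 passed without knockout replicate 2 and knockout replicate 3, respectively. Of the oxidation genes, 4, 5, 2 and 4 passed without wild type replicate 1, knockout replicate 1, knockout replicate 2 and knockout replicate 3, respectively. Fabp1, Vnn1, Fads2, Ncoa2, Cpt1a and Acad11 kept their calls whichever library was left out. Acadvl (-0.81) lost its call without wild type replicate 1. Acadvl (-0.76) lost its call without wild type replicate 2. Acadvl (-0.68), Etfb (1.41) and Eci1 (0.91) lost their calls without knockout replicate 2. Acadvl (-0.93) lost its call without knockout replicate 3.

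Called genes of triglyceride and polyunsaturated fatty acid synthesis went both ways, as did all genes tested, of which 12.2% rose and 12.1% fell. Those lower were Gpam, Elovl2, Gpat4, Fads2 and Scd1. Gpat4, the glycerol-3-phosphate acyltransferase of the endoplasmic reticulum, had 34.2, 42.1 and 31.2 FPKM in the wild type libraries and 17.7, 18.8 and 16.9 FPKM in the knockout libraries (log2 fold change -0.98 ± 0.14 SE, adjusted p = 0.00811). Elovl2, which elongates polyunsaturated fatty acids, had 161, 186 and 168 FPKM in wild type against 93.8, 76.3 and 89.3 FPKM in the knockout (-0.99 ± 0.13, adjusted p = 0.00745). The next enzyme of the glycerolipid pathway, Agpat2, went up, at 105, 99.9 and 91.2 FPKM in wild type and 148, 157 and 155 in the knockout (0.64 ± 0.12, adjusted p = 0.0128). In all, 4 of 35 members rose and 5 fell, 7 and 5 without wild type replicate 3 and 3 and 4 in all 4 fits, and the median turned from -0.14 to 0.11 without wild type replicate 3. Among 36 cholesterol genes 3 rose and 4 fell, 4 and 5 without wild type replicate 3 and 2 and 1 with the length trend removed, with medians of -0.10, 0.22 and -0.02. Ebp, a sterol isomerase of cholesterol synthesis, had 91.1, 82.5 and 91.2 FPKM in the wild type libraries and 148, 152 and 142 FPKM in the knockout libraries (0.74 ± 0.11, adjusted p = 0.00881), and was higher in each knockout library. Of the fatty acid and triglyceride genes, 4 and 5 passed without knockout replicate 2 and knockout replicate 3, respectively. Of the cholesterol genes, 3, 4, 3, 2 and 2 passed without wild type replicate 1, wild type replicate 2, knockout replicate 1, knockout replicate 2 and knockout replicate 3, respectively. The calls of Gpat4, Elovl2 and Ebp held whichever library was left out. Agpat2 (0.62) lost its call without knockout replicate 2. Agpat2 (0.63) lost its call without knockout replicate 3.

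Of 25 genes of bile acid synthesis and transport 0 rose and 7 fell, against 12.2% and 12.1% of all genes; without wild type replicate 3 2 rose and 8 fell, and 0 and 5 in all 4 fits were called. Klb, the coreceptor through which FGF15 signals to hepatocytes, had 11.8, 8.64 and 7.56 FPKM in wild type against 2.49, 2.29 and 2.85 FPKM in the knockout (log2 fold change -1.67 ± 0.18 SE, adjusted p = 0.00676). Slco1b2, an uptake carrier, had 241, 214 and 211 FPKM in wild type and 139.5, 106 and 108 in the knockout (-0.92 ± 0.15, adjusted p = 0.00995), and Cyp27a1, which starts the acidic pathway, 279, 258 and 278 FPKM in the wild type libraries and 195, 184 and 187 FPKM in the knockout libraries (-0.52 ± 0.11, adjusted p = 0.0195). Abcc2, the canalicular efflux pump, had 62.4, 52.7 and 85.7 FPKM in wild type against 31.5, 37.3 and 38.8 FPKM in the knockout (-0.87 ± 0.20), a call lost once the length trend was removed. Lipoprotein genes were called in both directions: 6 of 23 rose and 5 fell, 6 and 6 without wild type replicate 3, 2 and 5 with the length trend removed and 2 and 3 in all 4 fits. Apob, the structural protein of very low density lipoprotein, had 652, 551 and 468 FPKM in wild type and 310.1, 247 and 243 in the knockout (-1.06 ± 0.17, adjusted p = 0.01), and Apom, a carrier of sphingosine-1-phosphate, 234, 257 and 212 FPKM in the wild type libraries and 148, 93.1 and 70.3 FPKM in the knockout libraries (-1.24 ± 0.27). Among the rises were Apoc3 at 1311, 1565 and 1277 FPKM in wild type against 2731, 3478 and 2217 FPKM in the knockout (1.00 ± 0.20), Apoc4 at 160.2, 186 and 94.5 FPKM in wild type and 325, 411 and 300.2 in the knockout (1.28 ± 0.27) and Apof at 508, 549 and 558 FPKM in the wild type libraries and 884, 943 and 817 FPKM in the knockout libraries (0.71 ± 0.12). Apob has an exon length of 13934 bases and these 3 have 1014, 2537 and 1258, and the calls of Apob, Apom and Apoc4 were made in all 4 fits, and those of Apoc3 and Apof were not. Of the bile acid genes, 3, 3, 2 and 3 passed without wild type replicate 1, knockout replicate 1, knockout replicate 2 and knockout replicate 3, respectively. Of the lipoprotein genes, 3, 5, 0 and 6 passed without wild type replicate 1, knockout replicate 1, knockout replicate 2 and knockout replicate 3, respectively. Klb kept its call whichever library was left out. Cyp27a1 (-0.50), Abcc2 (-0.90), Apom (-1.24) and Apoc3 (0.97) lost their calls without wild type replicate 1. Cyp27a1 (-0.55), Abcc2 (-0.78), Apoc3 (1.01) and Apoc4 (1.31) lost their calls without knockout replicate 1. Slco1b2 (-0.85), Cyp27a1 (-0.51), Abcc2 (-0.90), Apob (-1.01), Apom (-1.20), Apoc3 (0.84), Apoc4 (1.14) and Apof (0.66) lost their calls without knockout replicate 2. Cyp27a1 (-0.52) and Abcc2 (-0.93) lost their calls without knockout replicate 3.

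In the 6 libraries respiratory chain transcripts rose more often than those of any other list examined. That order did not hold in every fit. Without knockout replicate 2, 7 of 42 complex II to V genes passed, against 15 of 77 mitochondrial ribosomal protein genes. Of 37 nuclear subunits of complex I, the NADH dehydrogenase, 30 rose and 0 fell, 30 and 0 without wild type replicate 3, 23 and 0 with the length trend removed and 22 and 0 in all 4 fits, with medians of 0.99, 0.81 and 0.68. Ndufa5 had 38.9, 46.8 and 32.3 FPKM in wild type against 112, 132 and 97.5 FPKM in the knockout (log2 fold change 1.53 ± 0.18 SE, adjusted p = 0.00676). Ndufb3 had 36.1, 41.1 and 26.2 FPKM in wild type and 95.6, 101 and 90.0 in the knockout (1.48 ± 0.18, adjusted p = 0.00676) and Ndufc1 21.3, 21.8 and 15.7 FPKM in the wild type libraries and 48.1, 50.9 and 45.9 FPKM in the knockout libraries (1.29 ± 0.15, adjusted p = 0.00676). The lowest knockout library exceeded the highest wild type library in these 3 genes. Ndufv2, a core subunit of the electron input module, had 37.6, 38.3 and 35.7 FPKM in wild type against 74.5, 73.9 and 68.2 FPKM in the knockout (0.95 ± 0.11), and Ndufc2 39.1, 36 and 34.6 FPKM in wild type and 75.9, 70.4 and 73.1 in the knockout (0.99 ± 0.11). Subunits of complexes II to V, which carry electrons to oxygen and make ATP, gave 32 higher and 0 lower of 42, 32 and 1 without wild type replicate 3, 21 and 2 with the length trend removed and 20 and 0 in all 4 fits, with medians of 0.89, 0.68 and 0.56. Cycs, cytochrome c, had 20.2, 19.2 and 17.7 FPKM in the wild type libraries and 46.9, 45.6 and 42.5 FPKM in the knockout libraries (1.22 ± 0.11, adjusted p = 0.00676). Cox7b, of cytochrome oxidase, had 97.7, 95.8 and 72.5 FPKM in wild type against 208, 221 and 185 FPKM in the knockout (1.21 ± 0.16), Uqcrb, of the cytochrome bc1 complex, 82, 99.9 and 85.1 FPKM in wild type and 209, 221 and 161 in the knockout (1.13 ± 0.16), and Atp5g1, of the rotor of ATP synthase, 22.8, 22.1 and 17.1 FPKM in the wild type libraries and 48.9, 47.9 and 42.9 FPKM in the knockout libraries (1.16 ± 0.14). The median exon length was 1569 bases for the complex I list and 1870 for the complex II to V list. Both lie in the short class, of which 915 of 3973 genes rose. Atp5g1 and Cycs are longer, with exon lengths of 4912 and 3404 bases, both within the middle length class. Of the complex I genes, 23, 21, 9 and 23 passed without wild type replicate 1, knockout replicate 1, knockout replicate 2 and knockout replicate 3, respectively. Of the complex II to V genes, 22, 26, 14, 7 and 18 passed without wild type replicate 1, wild type replicate 2, knockout replicate 1, knockout replicate 2 and knockout replicate 3, respectively. The calls of Ndufa5, Ndufb3, Ndufc1, Ndufv2, Ndufc2, Cycs, Cox7b, Uqcrb and Atp5g1 held whichever library was left out, with the length trend not removed. With the trend removed, only 5 of all genes tested were called higher when knockout replicate 2 was dropped.

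Transcripts of the mitochondrial genome and of the machinery that builds mitochondria were also called mostly higher. Of 13 mitochondrially encoded protein genes 8 rose and 0 fell, 9 and 0 without wild type replicate 3, 6 and 0 with the length trend removed and 6 and 0 in all 4 fits, with medians of 1.00, 1.01 and 0.56 and, under quantile normalization, of 0.22. The complex I subunit mt-Nd1 had 4467, 5187 and 4869 FPKM in wild type against 9371, 9965 and 9971 FPKM in the knockout (log2 fold change 1.01 ± 0.13 SE, adjusted p = 0.00693). The cytochrome b gene mt-Cytb had 7961, 8653 and 8519 FPKM in wild type and 16319, 19564 and 14574 in the knockout (1.00 ± 0.16, adjusted p = 0.0091). Nuclear copies of mitochondrial genes can share such reads. The median exon length of the mitochondrially encoded genes was 784 bases and that of the mitochondrial ribosomal protein genes 2533 bases, both in the short class. Mitochondrial ribosomal proteins gave 43 higher and 0 lower of 77, 45 and 0 without wild type replicate 3, 33 and 1 with the length trend removed and 29 and 0 in all 4 fits, with medians of 0.59, 0.49 and 0.43. Mrps15 had 10.5, 11.1 and 11.3 FPKM in the wild type libraries and 21.1, 22.2 and 21.5 FPKM in the knockout libraries (0.94 ± 0.10, adjusted p = 0.00676) and Mrpl42 6.57, 6.87 and 7.36 FPKM in wild type against 14.7, 14.7 and 13.4 FPKM in the knockout (0.99 ± 0.11), with a narrow spread in both groups. Mrpl33, a gene with an exon length of 7326 bases and thus of the long class, had 1.2, 1.21 and 1.16 FPKM in wild type and 2.81, 3.78 and 2.96 in the knockout (1.11 ± 0.14). Protein import genes gave 15 higher and 1 lower of 33, 18 and 2 without wild type replicate 3 and 9 and 1 in all 4 fits, with Dnajc19, of the import motor, at 6.81, 7.96 and 6.92 FPKM in the wild type libraries and 14, 14.1 and 15 FPKM in the knockout libraries (0.95 ± 0.11) and Tomm40, the outer membrane pore, at 4.97, 5.33 and 4.35 FPKM in wild type against 8.81, 9.65 and 7.34 FPKM in the knockout (0.75 ± 0.14). Mitochondrial carriers of the SLC25 family did not move as a group: 3 of 35 rose and 3 fell, 4 and 4 without wild type replicate 3, with Slc25a5, the ADP/ATP carrier, at 191, 167 and 178 FPKM in wild type and 304, 307 and 303 in the knockout (0.77 ± 0.12). Of the mitochondrially encoded genes, 4 passed without knockout replicate 2. Of the mitochondrial ribosome genes, 27 and 15 passed without knockout replicate 1 and knockout replicate 2, respectively. Of the import genes, 7, 8, 3 and 8 passed without wild type replicate 1, knockout replicate 1, knockout replicate 2 and knockout replicate 3, respectively. Of the SLC25 carriers 2 rose and 1 fell without wild type replicate 1, 2 and 0 without knockout replicate 2, and 2 and 1 without knockout replicate 3. mt-Nd1, mt-Cytb, Mrps15, Mrpl42, Mrpl33, Dnajc19 and Slc25a5 kept their calls whichever library was left out. Tomm40 (0.67) lost its call without knockout replicate 2.

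Pyruvate and citric acid cycle genes were mixed, 7 higher and 3 lower of 32, 7 and 4 without wild type replicate 3, 7 and 4 with the length trend removed and 4 and 2 in all 4 fits. Sdhb, shared with complex II, had 77.7, 65.8 and 59.2 FPKM in the wild type libraries and 122, 142 and 112 FPKM in the knockout libraries (log2 fold change 0.89 ± 0.15 SE, adjusted p = 0.0113), and Mdh2, mitochondrial malate dehydrogenase, 46.5, 41.3 and 35.8 FPKM in wild type against 73.7, 65.1 and 67.9 FPKM in the knockout (0.74 ± 0.14, adjusted p = 0.0131). Pdha1, the catalytic subunit of pyruvate dehydrogenase, had 23.4, 20.8 and 20.9 FPKM in wild type and 14.7, 12.6 and 14.1 in the knockout (-0.64 ± 0.12, adjusted p = 0.0128). Like the phosphatase regulator Pdpr, Pdha1 was lower in each knockout library. Of the pyruvate and citric acid cycle genes, 5, 5, 6, 1 and 4 passed without wild type replicate 1, wild type replicate 2, knockout replicate 1, knockout replicate 2 and knockout replicate 3, respectively. Sdhb (0.80), Mdh2 (0.78) and Pdha1 (-0.57) lost their calls without knockout replicate 2.

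**Figure D4:**
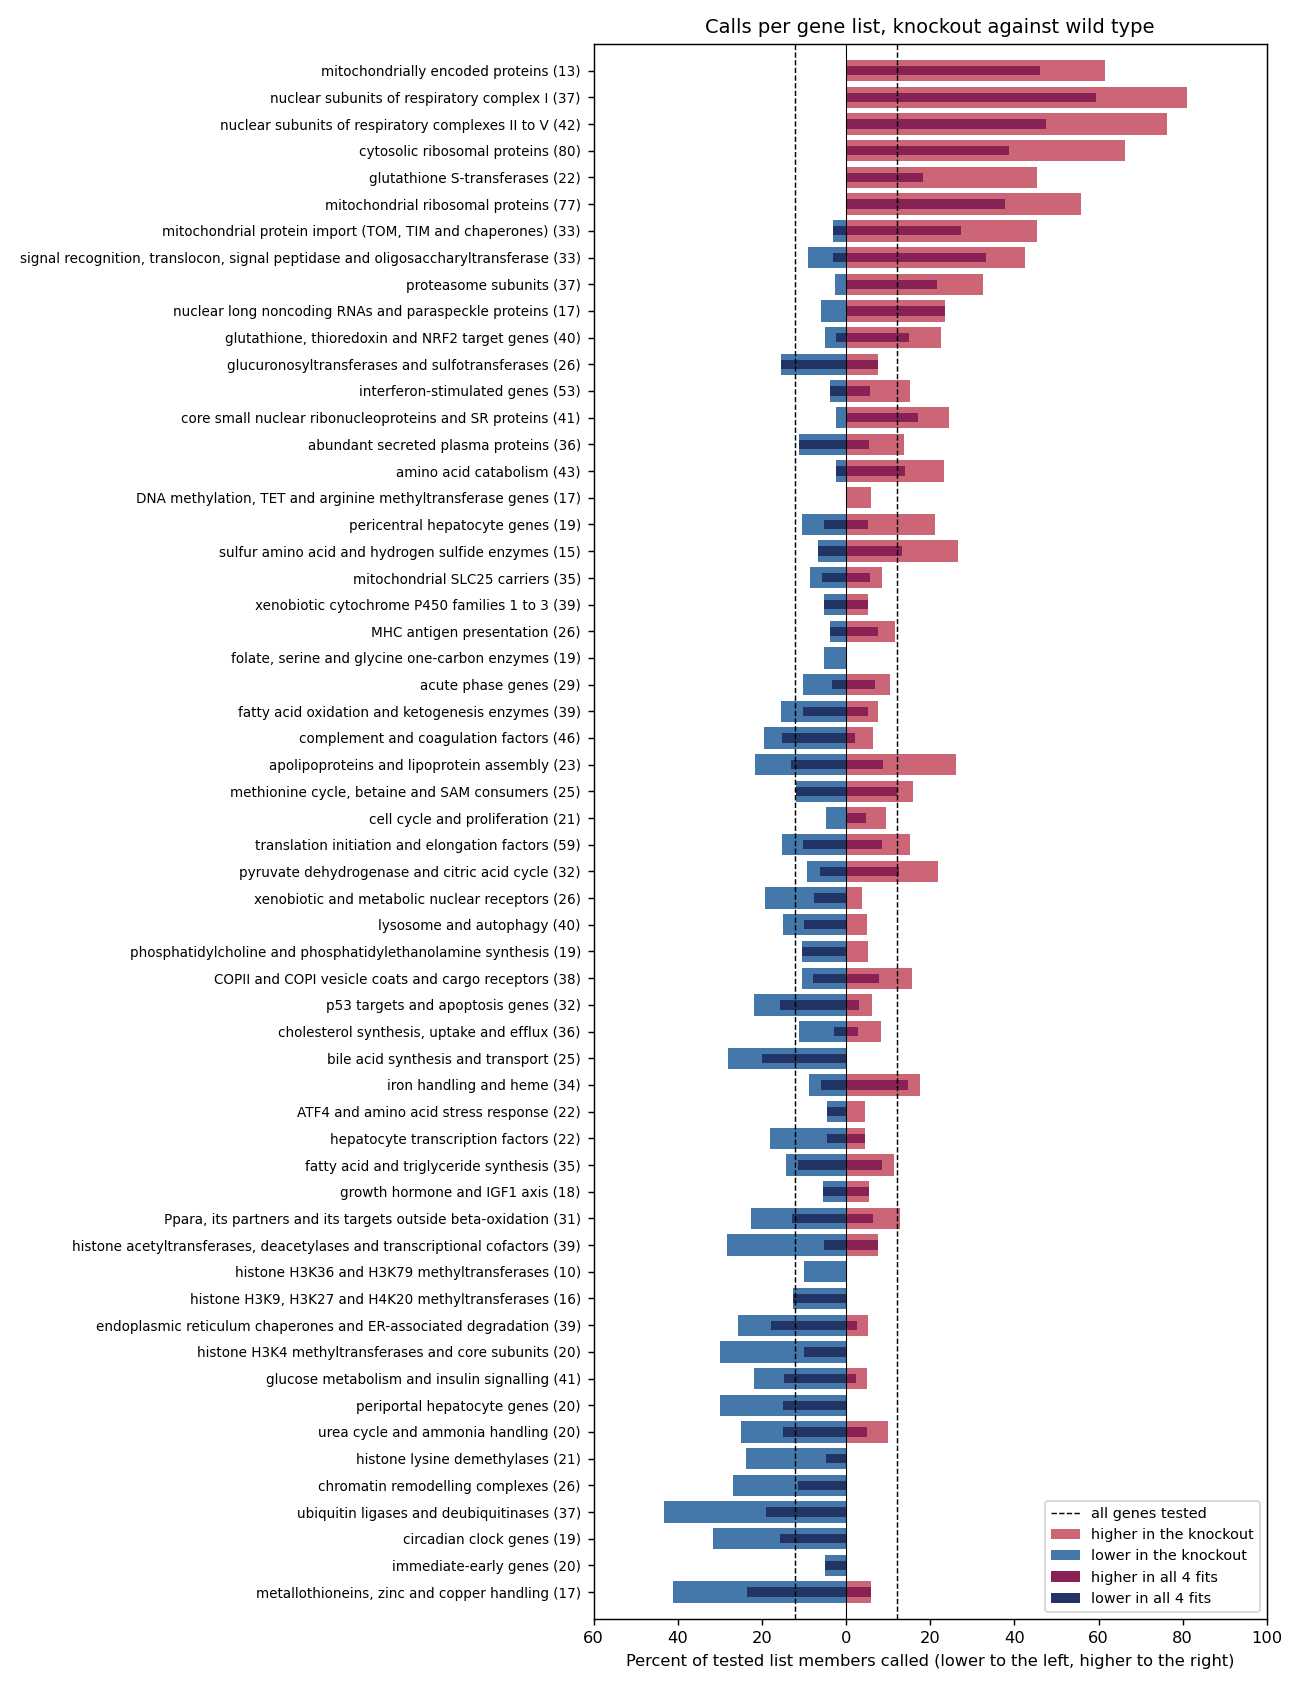
Percent of tested members of each gene list that were called higher (right) or lower (left) in the Cth knockout in the 6 libraries (wide bars) and in all 4 fits (narrow bars), ordered by median log2 fold change. Dashed lines mark the percentages over all genes tested, 12.1% lower and 12.2% higher. Respiratory chain and ribosome lists extend furthest to the right.

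More than 1 in 2 cytosolic ribosomal protein genes rose, while translation factors were called equally often in both directions. Of 80 ribosomal protein genes 53 rose and 0 fell, 56 and 0 without wild type replicate 3, 31 and 0 with the length trend removed and 31 and 0 in all 4 fits, with medians of 0.75, 0.61 and 0.49. Rps25 had 63.8, 61.9 and 50.4 FPKM in the wild type libraries and 123, 135 and 115 FPKM in the knockout libraries (log2 fold change 1.08 ± 0.14 SE, adjusted p = 0.00699) and Rpsa 125, 134 and 100.4 FPKM in wild type against 246, 249.6 and 235 FPKM in the knockout (1.03 ± 0.14, adjusted p = 0.00797). Rpl27a had 82.6, 83.2 and 60.2 FPKM in wild type and 157, 179 and 149 in the knockout (1.11 ± 0.17). In each of them wild type replicate 3 was the lowest library and all knockout libraries lay above the wild type range. Processed copies of ribosomal protein genes can share reads. The median exon length of the ribosomal protein genes was 1776 bases, in the short class. Translation initiation and elongation factors gave 9 higher and 9 lower of 59, 9 and 8 without wild type replicate 3 and 5 and 6 in all 4 fits, with medians of -0.02, -0.04 and 0.08. The share of all genes in the 6 libraries was 12.2% higher and 12.1% lower. Eif4g1, the scaffold that joins the cap complex to the ribosome, had 72.3, 70.0 and 60.8 FPKM in the wild type libraries and 44.6, 40.6 and 42.5 FPKM in the knockout libraries (-0.66 ± 0.12, adjusted p = 0.0128). Eif4ebp2, a repressor of cap-dependent initiation, had 54.9, 57.8 and 51.4 FPKM in wild type against 35.3, 34.7 and 33.5 FPKM in the knockout (-0.66 ± 0.11, adjusted p = 0.0101). Eif3k, a small subunit of the eIF3 complex, had 13.5, 16.7 and 11.1 FPKM in wild type and 24.3, 29.2 and 23.7 in the knockout (0.89 ± 0.17). Of the cytosolic ribosomal genes, 30, 24, 11 and 35 passed without wild type replicate 1, knockout replicate 1, knockout replicate 2 and knockout replicate 3, respectively. Of the translation factors, 5, 11, 9, 0 and 5 passed without wild type replicate 1, wild type replicate 2, knockout replicate 1, knockout replicate 2 and knockout replicate 3, respectively. Rps25, Rpsa and Rpl27a kept their calls whichever library was left out. Eif4g1 (-0.63), Eif4ebp2 (-0.66) and Eif3k (0.80) lost their calls without knockout replicate 2.

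Proteasome subunits and ubiquitin ligases moved apart. Of 37 proteasome genes 12 rose and 1 fell, 12 and 2 without wild type replicate 3, 9 and 1 with the length trend removed and 8 and 0 in all 4 fits, with medians of 0.32, 0.30 and 0.15 and -0.09 under TPM, which is 0.27 above the median of all genes. Psma4, of the outer ring of the core particle, had 42.5, 38.7 and 37.8 FPKM in the wild type libraries and 66.7, 66.8 and 70.9 FPKM in the knockout libraries (log2 fold change 0.77 ± 0.11 SE, adjusted p = 0.00811), and Psmb3, of the inner ring, 32.8, 33.2 and 24.5 FPKM in wild type against 55.2, 57.5 and 55.3 FPKM in the knockout (0.89 ± 0.15, adjusted p = 0.00988). Of 37 ubiquitin ligases and deubiquitinases 0 rose and 16 fell, 0 and 18 without wild type replicate 3, 1 and 7 with the length trend removed and 0 and 7 in all 4 fits, with medians of -0.42, -0.47 and -0.24. Usp9x, a deubiquitinase, had 10.4, 6.06 and 7.91 FPKM in wild type and 2.13, 1.8 and 2.32 in the knockout (-1.71 ± 0.20, adjusted p = 0.00676). Nedd4, a HECT ligase, had 24.2, 19.8 and 24.1 FPKM in the wild type libraries and 13.8, 12 and 13.5 FPKM in the knockout libraries (-0.77 ± 0.13). The median exon length of the ubiquitin list was 7766 bases, in the long class, and 9 of its 16 calls were not made in all 4 fits. Of the proteasome genes, 7, 7, 1 and 5 passed without wild type replicate 1, knockout replicate 1, knockout replicate 2 and knockout replicate 3, respectively. Of the ubiquitin genes, 7, 10, 4 and 6 passed without wild type replicate 1, knockout replicate 1, knockout replicate 2 and knockout replicate 3, respectively. The calls of Psma4 and Usp9x held whichever library was left out. Psmb3 (0.87) and Nedd4 (-0.71) lost their calls without knockout replicate 2.

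Within the endoplasmic reticulum, called chaperone and degradation genes were mostly lower and called genes of protein entry mostly higher. Of 39 chaperones and genes of ER-associated degradation (ERAD) 2 rose and 10 fell, 2 and 13 without wild type replicate 3, 2 and 9 with the length trend removed and 1 and 7 in all 4 fits, with medians of -0.21, -0.14 and -0.16. Herpud1, which organizes the degradation complex, had 314, 257 and 339 FPKM in wild type against 112, 116 and 129 FPKM in the knockout (log2 fold change -1.34 ± 0.15 SE, adjusted p = 0.00676). Atf6, the membrane-bound transcription factor of the unfolded protein response, had 11.7, 10.4 and 11.6 FPKM in wild type and 5.92, 4.16 and 4.8 in the knockout (-1.12 ± 0.15, adjusted p = 0.00693). Nploc4, of the extraction machinery, had 22.3, 23.7 and 19.6 FPKM in the wild type libraries and 12.5, 10.6 and 11 FPKM in the knockout libraries (-0.92 ± 0.12), and Sel1l, the adaptor of the ligase Hrd1, 24.3, 23.9 and 20.4 FPKM in wild type against 15.4, 12.7 and 11.7 FPKM in the knockout (-0.77 ± 0.14), whose call was lost in the 6 libraries with the length trend removed. In each of these the knockout libraries were all below the wild type libraries. Signal recognition, translocon and glycosylation genes gave 14 higher and 3 lower of 33, 15 and 3 without wild type replicate 3, 14 and 1 with the length trend removed and 11 and 1 in all 4 fits, with medians of 0.34, 0.38 and 0.28 and -0.07 under TPM, which is 0.29 above the median of all genes. Tmem258, of the oligosaccharyltransferase, had 9.38, 10.2 and 8.79 FPKM in wild type and 23.7, 24.9 and 20.3 in the knockout (1.23 ± 0.12, adjusted p = 0.00676), Krtcap2, of the same complex, 22.6, 22.1 and 19.1 FPKM in the wild type libraries and 44.4, 53.3 and 46.4 FPKM in the knockout libraries (1.16 ± 0.13), and Sec61b, of the translocon, 33.9, 34.8 and 24.1 FPKM in wild type against 81.5, 66.9 and 60.1 FPKM in the knockout (1.16 ± 0.19). Of the chaperone and ERAD genes, 6, 4 and 5 passed without wild type replicate 1, knockout replicate 2 and knockout replicate 3, respectively. Of the ER entry genes, 6, 6, 3 and 7 passed without wild type replicate 1, knockout replicate 1, knockout replicate 2 and knockout replicate 3, respectively. Herpud1, Atf6, Nploc4, Tmem258, Krtcap2 and Sec61b kept their calls whichever library was left out. Sel1l (-0.74) lost its call without knockout replicate 2.

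The unfolded protein response acts partly through a promoter element, the ER stress response element, searched as CCAAT and CCACG with any 9 bases between them, on both strands in the 250 bases before the start (RefSeq, GRCm38.p6). It was found in 16 of 8558 tested genes with a window (0.187%). Among chaperone and ERAD genes it was in 2 of 7 called lower (28.6%) and 1 of 2 called higher (50%). The 3 genes that hold it are shown because they carry the same element and moved in different directions, with the element in capitals. Windows are chr14:118937787-118937885 (plus strand) for Dnajc3, chr11:50325760-50325858 (minus strand) for Canx and chr8:84847035-84847133 (minus strand) for Calr.
Dnajc3: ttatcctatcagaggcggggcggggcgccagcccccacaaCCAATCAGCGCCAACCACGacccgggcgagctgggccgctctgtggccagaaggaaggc
Canx: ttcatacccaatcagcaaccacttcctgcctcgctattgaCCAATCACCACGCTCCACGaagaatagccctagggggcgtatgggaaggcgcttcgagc
Calr: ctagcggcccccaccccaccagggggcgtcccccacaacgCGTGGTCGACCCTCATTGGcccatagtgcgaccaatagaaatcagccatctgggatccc

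In Calr the match is on the opposite strand, so it reads in reverse complement. Dnajc3, a cochaperone of the ER, had 66.5, 72.1 and 80.9 FPKM in wild type and 43.8, 34.4 and 34.7 in the knockout (log2 fold change -0.95 ± 0.15 SE, adjusted p = 0.00881), called in all 4 fits. Canx, the membrane lectin calnexin, had 83.2, 91.5 and 83.9 FPKM in the wild type libraries and 71.7, 51.7 and 52.8 FPKM in the knockout libraries (-0.56 ± 0.16, adjusted p = 0.0416), a call lost with the length trend removed. Calr, the soluble lectin calreticulin with the same ligands, had 237, 262 and 265 FPKM in wild type against 385, 387 and 375 FPKM in the knockout (0.59 ± 0.12, adjusted p = 0.0153), called in all 4 fits. The lowest knockout library of Calr stood above the highest wild type library, and the highest knockout libraries of Dnajc3 and Canx stood below the lowest wild type ones. Canx and Calr were chosen for the shared element after their values were seen. Dnajc3 kept its call whichever library was left out. Canx (-0.59) and Calr (0.54) lost their calls without wild type replicate 1. Canx (-0.52) lost its call without wild type replicate 2. Calr (0.58) lost its call without knockout replicate 1. Canx (-0.48) and Calr (0.58) lost their calls without knockout replicate 2. Canx (-0.50) and Calr (0.60) lost their calls without knockout replicate 3.

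Vesicle coat genes were called both ways, 6 higher and 4 lower of 38, with 6 and 6 without wild type replicate 3 and 3 and 3 in all 4 fits. Over all genes 12.2% were called higher and 12.1% lower in the 6 libraries. Cope, a COPI subunit, had 24.4, 25.2 and 19 FPKM in wild type and 48.3, 50.6 and 45.3 in the knockout (log2 fold change 1.06 ± 0.14 SE, adjusted p = 0.00735). Sec23a, of the COPII coat, had 19.8, 17.9 and 19.1 FPKM in the wild type libraries and 11.2, 9.86 and 10.8 FPKM in the knockout libraries (-0.81 ± 0.11, adjusted p = 0.00745), and Mia3, the receptor that loads large cargo into COPII carriers, 39.2, 42.3 and 35.6 FPKM in wild type against 23, 20.7 and 23.5 FPKM in the knockout (-0.79 ± 0.12). Mia2, its partner for lipoprotein particles, had 29.1, 24.7 and 26.5 FPKM in wild type and 15.8, 14.9 and 16.2 in the knockout (-0.75 ± 0.11). Coat genes of both kinds were called in both directions: Sec13, of COPII, was higher and Copa, of COPI, lower (chosen after their values were seen), and neither call was made once the length trend was removed. Of the vesicle genes, 4, 5, 4, 4 and 4 passed without wild type replicate 1, wild type replicate 2, knockout replicate 1, knockout replicate 2 and knockout replicate 3, respectively. Cope, Sec23a, Mia3 and Mia2 kept their calls whichever library was left out.

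Interferon-stimulated genes depended on wild type replicate 3. Of 53 tested genes 8 rose and 2 fell in the 6 libraries, and 20 and 2 without wild type replicate 3, where 14.1% and 14.6% of all genes were higher and lower; 5 and 2 with the length trend removed and 3 and 2 in all 4 fits were called. The medians were 0.25, 0.43 and 0.24 and -0.07 under TPM, which is 0.29 above the median of all genes. Ifitm3, a membrane protein that blocks virus entry, had 283, 316 and 393 FPKM in the wild type libraries and 787, 866 and 605 FPKM in the knockout libraries (log2 fold change 1.18 ± 0.19 SE, adjusted p = 0.00963). Ifi35 had 7.21, 6.1 and 7.11 FPKM in wild type against 12.6, 14.8 and 11.3 FPKM in the knockout (0.87 ± 0.14, adjusted p = 0.00911). Both rises were called in all 4 fits. Trim25, the ligase that activates the RNA sensor RIG-I, had 25.4, 27.3 and 16.8 FPKM in wild type and 9.2, 9.42 and 8.8 in the knockout (-1.26 ± 0.19, adjusted p = 0.0088), and was lower in each knockout library. Summed FPKM of T and NK cell markers were 5.47 to 9.01 in wild type and 5.81 to 6.53 in the knockout, and their part in these genes was not tested. Antigen presentation genes gave 3 higher and 1 lower of 26, 3 and 1 without wild type replicate 3, with Psme1, of the proteasome activator that interferon gamma induces, at 26.1, 28.4 and 27.6 FPKM in the wild type libraries and 50.6, 55.8 and 57.3 FPKM in the knockout libraries (0.98 ± 0.11) and Erap1, the peptide trimming protease, at 12.2, 10.3 and 15.9 FPKM in wild type against 7.42, 5.61 and 6.26 FPKM in the knockout (-0.93 ± 0.18). Of the interferon-stimulated genes, 4, 6, 3 and 3 passed without wild type replicate 1, knockout replicate 1, knockout replicate 2 and knockout replicate 3, respectively. The calls of Ifitm3, Ifi35, Trim25 and Psme1 held whichever library was left out. Erap1 (-0.84) lost its call without knockout replicate 2. Erap1 (-0.91) lost its call without knockout replicate 3.

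The interferon-stimulated response element was searched by its core, GAAA repeated after any 2 bases, on both strands in the same windows. Of 8558 genes 273 held it (3.19%), as did 2 of 7 called rises in the list (28.6%) and 1 of 2 called falls (50%). The 3 promoters are shown because they hold the core and moved in different directions, with matches in capitals, overlapping ones run together. Windows are chr19:34583333-34583456 (plus strand) for Ifit3, chr4:156200835-156200936 (minus strand) for Isg15 and chr11:58214873-58214962 (plus strand) for Irgm2.
Ifit3: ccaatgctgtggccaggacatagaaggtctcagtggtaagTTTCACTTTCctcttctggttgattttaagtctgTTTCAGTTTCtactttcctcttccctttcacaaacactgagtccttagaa
Isg15: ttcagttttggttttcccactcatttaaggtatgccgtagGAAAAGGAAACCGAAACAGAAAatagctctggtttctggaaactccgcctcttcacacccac
Irgm2: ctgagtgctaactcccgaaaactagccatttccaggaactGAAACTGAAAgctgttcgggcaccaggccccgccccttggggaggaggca

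Ifit3, which binds viral RNA complexes, had 3.13, 2.59 and 4.59 FPKM in wild type and 6.79, 7.15 and 6 in the knockout (log2 fold change 0.89 ± 0.20 SE, adjusted p = 0.021). Isg15, a ubiquitin-like modifier, had 6.13, 6.49 and 11 FPKM in the wild type libraries and 14, 26.7 and 16.2 FPKM in the knockout libraries (1.21 ± 0.30, adjusted p = 0.0307). In both, wild type replicate 3 was the highest wild type library, and with the length trend removed the call was made only when that library was left out. Irgm2, an interferon-inducible GTPase, had 11.6, 14.7 and 17.4 FPKM in wild type against 8.82, 7.52 and 7.17 FPKM in the knockout (-0.84 ± 0.17, adjusted p = 0.0164), called in all 4 fits. Ifit3 and Isg15 were chosen for the shared core after their values were seen. Ifit3 (0.85) and Isg15 (1.06) lost their calls without wild type replicate 1. Isg15 (1.10) lost its call without wild type replicate 2. Ifit3 (0.87) lost its call without knockout replicate 1. Ifit3 (0.84), Isg15 (0.94) and Irgm2 (-0.81) lost their calls without knockout replicate 2. Ifit3 (0.96), Isg15 (1.29) and Irgm2 (-0.78) lost their calls without knockout replicate 3.

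Called genes of insulin signalling and glycogen were mostly lower. In the list of glucose metabolism and insulin signalling 2 of 41 rose and 9 fell, 4 and 10 without wild type replicate 3, 2 and 7 with the length trend removed and 1 and 6 in all 4 fits, with medians of -0.24, -0.23 and -0.21. Insr, the insulin receptor, had 11.6, 10.5 and 11.1 FPKM in wild type and 6.26, 6.27 and 6.35 in the knockout (log2 fold change -0.77 ± 0.10 SE, adjusted p = 0.00698). Irs1, the adaptor below it, had 1.97, 1.72 and 1.46 FPKM in the wild type libraries and 0.494, 0.347 and 0.778 FPKM in the knockout libraries (-1.11 ± 0.20, adjusted p = 0.0124). Both were lower in each knockout library. Ppp1r3c, which brings protein phosphatase to glycogen, had 70.0, 68.7 and 54.7 FPKM in wild type against 21.3, 15 and 27 FPKM in the knockout (-1.62 ± 0.22, adjusted p = 0.00791). Gpi1, of glycolysis, went up, at 16.8, 19.3 and 13.4 FPKM in wild type and 29.6, 28.1 and 24.8 in the knockout (0.73 ± 0.16). Of the glucose and insulin genes, 5, 6, 3 and 5 passed without wild type replicate 1, knockout replicate 1, knockout replicate 2 and knockout replicate 3, respectively. The calls of Insr and Ppp1r3c held whichever library was left out. Gpi1 (0.75) lost its call without wild type replicate 1. Gpi1 (0.68) lost its call without knockout replicate 1. Irs1 (-0.97) and Gpi1 (0.72) lost their calls without knockout replicate 2.

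Of 20 urea cycle and ammonia genes 2 rose and 5 fell, 1 and 5 without wild type replicate 3 and 1 and 3 in all 4 fits, with medians of -0.28, -0.19 and -0.18. Cps1, the entry step of the cycle, had 887, 488 and 1044 FPKM in the wild type libraries and 339.5, 225 and 311 FPKM in the knockout libraries (log2 fold change -1.42 ± 0.31 SE, adjusted p = 0.0207), with a wide spread in wild type. Slc25a13, the aspartate carrier citrin, had 66.8, 53.5 and 59.6 FPKM in wild type against 42.6, 32 and 36.2 FPKM in the knockout (-0.70 ± 0.15, adjusted p = 0.02). Otc, which makes citrulline, had 106, 86.3 and 84.3 FPKM in wild type and 137, 135 and 118 in the knockout (0.50 ± 0.14), a rise called in all 4 fits and named after its values were seen. Its call was lost on leaving out any of the 5 libraries other than wild type replicate 3. Amino acid catabolism gave 10 higher and 1 lower of 43, 11 and 3 without wild type replicate 3, 8 and 3 with the length trend removed and 6 and 1 in all 4 fits. Pcbd1, which recycles the cofactor of phenylalanine hydroxylase, had 202, 205 and 224 FPKM in the wild type libraries and 398, 449.7 and 401 FPKM in the knockout libraries (0.98 ± 0.12, adjusted p = 0.00676), Haao, of the kynurenine pathway, 324, 268 and 298 FPKM in wild type against 529, 570.3 and 508 FPKM in the knockout (0.85 ± 0.13), and Fah, the last enzyme of tyrosine breakdown, 218, 195 and 214 FPKM in wild type and 338, 391 and 331 in the knockout (0.75 ± 0.13). Tdo2, which opens the tryptophan ring, had 418, 302 and 529 FPKM in the wild type libraries and 217, 160.2 and 209.9 FPKM in the knockout libraries (-1.06 ± 0.23), the 1 fall. Of the urea cycle genes, 1, 3, 0 and 1 passed without wild type replicate 1, knockout replicate 1, knockout replicate 2 and knockout replicate 3, respectively. Of the amino acid catabolism genes, 6, 5, 2 and 3 passed without wild type replicate 1, knockout replicate 1, knockout replicate 2 and knockout replicate 3, respectively. Pcbd1 and Haao kept their calls whichever library was left out. Cps1 (-1.31), Slc25a13 (-0.62) and Tdo2 (-1.04) lost their calls without wild type replicate 1. Tdo2 (-1.14) lost its call without knockout replicate 1. Cps1 (-1.24), Slc25a13 (-0.60), Fah (0.68) and Tdo2 (-0.92) lost their calls without knockout replicate 2. Cps1 (-1.47), Slc25a13 (-0.69) and Tdo2 (-1.12) lost their calls without knockout replicate 3.

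Drug-metabolizing genes changed singly. Among 39 cytochrome P450 genes 2 rose and 2 fell, 5 and 2 without wild type replicate 3, and the same 4 were called in all 4 fits. Cyp1a2 had 322, 311 and 241 FPKM in wild type against 555, 649 and 567 FPKM in the knockout (log2 fold change 1.03 ± 0.16 SE, adjusted p = 0.00881) and Cyp2a12 143, 146 and 133 FPKM in wild type and 246, 261 and 225 in the knockout (0.79 ± 0.12, adjusted p = 0.00881). Cyp2c29 had 369.7, 328 and 531 FPKM in the wild type libraries and 165, 98.5 and 104 FPKM in the knockout libraries (-1.75 ± 0.26, adjusted p = 0.00881), and Cyp3a13 67.8, 66.2 and 98.5 FPKM in wild type against 40.9, 39.9 and 42.5 FPKM in the knockout (-0.88 ± 0.17). Conjugating enzymes gave 2 higher and 4 lower of 26, 5 and 5 without wild type replicate 3 and 2 and 4 in all 4 fits, with Sult1b1, a sulfotransferase, at 4.7, 4.23 and 3.78 FPKM in wild type and 9.66, 7.53 and 7.8 in the knockout (0.89 ± 0.14) and Ugt1a9, a glucuronosyltransferase, at 22.9, 23.3 and 18.4 FPKM in the wild type libraries and 11.8, 3.96 and 5.95 FPKM in the knockout libraries (-1.63 ± 0.35). Ugt1a genes share exons, so their reads cannot be assigned singly. Of the conjugation genes, 2, 3, 2 and 3 passed without wild type replicate 1, wild type replicate 2, knockout replicate 2 and knockout replicate 3, respectively. The calls of Cyp1a2, Cyp2a12, Cyp2c29 and Sult1b1 held whichever library was left out. Ugt1a9 (-1.58) lost its call without wild type replicate 1. Ugt1a9 (-1.57) lost its call without wild type replicate 2. Cyp3a13 (-0.88) lost its call without knockout replicate 1. Cyp3a13 (-0.86) and Ugt1a9 (-1.30) lost their calls without knockout replicate 2. Ugt1a9 (-1.56) lost its call without knockout replicate 3.

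Transcription factors of the hepatocyte and nuclear receptors were called mostly in the lower direction. Of 26 xenobiotic and metabolic receptors 1 rose and 5 fell, 3 and 5 without wild type replicate 3, 0 and 2 with the length trend removed and 0 and 2 in all 4 fits. Nr3c1, the glucocorticoid receptor, had 10.6, 11.7 and 11.6 FPKM in wild type against 6.78, 6.54 and 6.43 FPKM in the knockout (log2 fold change -0.74 ± 0.10 SE, adjusted p = 0.00797). Rora, a receptor of the clock, had 7.64, 6.12 and 9.26 FPKM in wild type and 3.69, 3.39 and 4.04 in the knockout (-0.94 ± 0.16, adjusted p = 0.0115). Of 22 hepatocyte transcription factors 1 rose and 4 fell, 2 and 7 without wild type replicate 3 and 1 and 1 in all 4 fits. Foxa2, a pioneer factor, had 10.8, 15.9 and 8.35 FPKM in the wild type libraries and 28, 33 and 19.97 FPKM in the knockout libraries (1.19 ± 0.27), and Hnf4a, a master regulator of the hepatocyte, 165, 147 and 211 FPKM in wild type against 107, 112 and 109 FPKM in the knockout (-0.66 ± 0.16), a call lost in the 6 libraries with the length trend removed. The fall called in all 4 fits was Foxa3, at 40.7, 46.2 and 29.3 FPKM in wild type and 21.2, 26.6 and 24.2 in the knockout (-0.66 ± 0.19). Clock genes gave 0 higher and 6 lower of 19, 2 and 9 without wild type replicate 3, 0 and 3 with the length trend removed and 0 and 3 in all 4 fits, with medians of -0.54, -0.50 and -0.29. Nfil3, a repressor with daily rhythm, had 62.5, 45.8 and 41.9 FPKM in the wild type libraries and 28.2, 25.4 and 27.2 FPKM in the knockout libraries (-0.86 ± 0.17), and Csnk1d, the kinase that times period proteins, 14.8, 17 and 14.3 FPKM in wild type against 10.8, 10.1 and 9.85 FPKM in the knockout (-0.56 ± 0.11). The labels give no hour of collection, so a difference in it and the genotype cannot be told apart for these genes. Of the nuclear receptors, 2, 3, 1 and 2 passed without wild type replicate 1, knockout replicate 1, knockout replicate 2 and knockout replicate 3, respectively. Of the hepatocyte transcription factors, 1, 0, 0 and 2 passed without wild type replicate 1, knockout replicate 1, knockout replicate 2 and knockout replicate 3, respectively. Of the clock genes, 0 and 1 passed without knockout replicate 2 and knockout replicate 3, respectively. Nr3c1 kept its call whichever library was left out. Foxa2 (1.16), Hnf4a (-0.69) and Foxa3 (-0.61) lost their calls without wild type replicate 1. Foxa3 (-0.52) lost its call without wild type replicate 2. Foxa2 (1.15), Hnf4a (-0.64) and Foxa3 (-0.57) lost their calls without knockout replicate 1. Rora (-0.89), Foxa2 (1.03), Hnf4a (-0.67), Foxa3 (-0.74), Nfil3 (-0.82) and Csnk1d (-0.55) lost their calls without knockout replicate 2. Hnf4a (-0.65), Foxa3 (-0.67), Nfil3 (-0.87) and Csnk1d (-0.54) lost their calls without knockout replicate 3.

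Zonal genes are those that hepatocytes near the portal or the central vein express more. Of 20 periportal genes 0 rose and 6 fell, 1 and 6 without wild type replicate 3, 1 and 3 with the length trend removed and 0 and 3 in all 4 fits, with medians of -0.28, -0.20 and -0.28. Pigr, the receptor that carries immunoglobulin A to bile, had 467, 382 and 468 FPKM in wild type and 249, 234 and 169.9 in the knockout (log2 fold change -1.02 ± 0.18 SE, adjusted p = 0.0124), and Fbp1, of gluconeogenesis, 500.3, 504 and 449 FPKM in the wild type libraries and 389, 294 and 333 FPKM in the knockout libraries (-0.52 ± 0.15, adjusted p = 0.042). Of 19 pericentral genes 4 rose and 2 fell, 4 and 3 without wild type replicate 3 and 1 and 1 with the length trend removed. Lhpp, a phosphatase, had 18.8, 25.2 and 22.6 FPKM in wild type against 30.2, 37.2 and 36.4 FPKM in the knockout (0.63 ± 0.15, adjusted p = 0.0266) and Lect2, a secreted chemotactic protein, 65.9, 74.6 and 100.1 FPKM in wild type and 132, 178 and 124 in the knockout (0.85 ± 0.21). Neither call was made in all 4 fits, where the pericentral calls were Cyp1a2 and Cyp27a1. In liver tissue, fewer cells of a zone and less RNA per cell cannot be told apart. Of the periportal genes, 2, 3, 1 and 1 passed without wild type replicate 1, knockout replicate 1, knockout replicate 2 and knockout replicate 3, respectively. Of the pericentral genes, 1, 3, 2, 1 and 1 passed without wild type replicate 1, wild type replicate 2, knockout replicate 1, knockout replicate 2 and knockout replicate 3, respectively. Pigr kept its call whichever library was left out. Fbp1 (-0.50), Lhpp (0.52) and Lect2 (0.72) lost their calls without wild type replicate 1. Fbp1 (-0.49) and Lect2 (0.81) lost their calls without wild type replicate 2. Fbp1 (-0.63) and Lect2 (0.91) lost their calls without knockout replicate 1. Fbp1 (-0.43), Lhpp (0.58) and Lect2 (0.70) lost their calls without knockout replicate 2. Fbp1 (-0.52), Lhpp (0.59) and Lect2 (0.95) lost their calls without knockout replicate 3.

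Complement and coagulation genes gave 3 higher and 9 lower of 46, 3 and 10 without wild type replicate 3, 2 and 11 with the length trend removed and 1 and 7 in all 4 fits. C3, the central complement protein, had 1569, 1522 and 2139 FPKM in the wild type libraries and 873, 795 and 792 FPKM in the knockout libraries (log2 fold change -1.07 ± 0.17 SE, adjusted p = 0.00901). F5, coagulation factor V, had 93.2, 80.9 and 85.2 FPKM in wild type against 51.8, 48.9 and 47.4 FPKM in the knockout (-0.80 ± 0.12, adjusted p = 0.00811), and F13b, the carrier subunit of factor XIII, 83.5, 76.6 and 86.4 FPKM in wild type and 49.7, 35 and 37 in the knockout (-1.02 ± 0.16). Abundant plasma proteins gave 5 higher and 4 lower of 36, 5 and 6 without wild type replicate 3 and 3 and 8 with the length trend removed. Pzp, an alpha-2-macroglobulin relative, had 874, 728 and 821 FPKM in the wild type libraries and 430.3, 351 and 358 FPKM in the knockout libraries (-1.09 ± 0.14), and Fetub, a protease inhibitor, 297, 297 and 237 FPKM in wild type against 453, 554 and 465 FPKM in the knockout (0.83 ± 0.15). Among 29 acute phase genes 3 rose and 3 fell, against 9 and 5 without wild type replicate 3. Orm1, orosomucoid, had 644, 659.8 and 685 FPKM in wild type and 1490.1, 1389 and 1259 in the knockout (1.05 ± 0.13), and Itih4 459, 417 and 741 FPKM in the wild type libraries and 265, 243 and 234 FPKM in the knockout libraries (-1.08 ± 0.23). Orm1 and Orm2 can share reads. Of the complement and coagulation genes, 6, 7, 4 and 6 passed without wild type replicate 1, knockout replicate 1, knockout replicate 2 and knockout replicate 3, respectively. Of the plasma protein genes, 3, 3, 1 and 2 passed without wild type replicate 1, knockout replicate 1, knockout replicate 2 and knockout replicate 3, respectively. Of the acute phase genes, 3, 2, 3 and 3 passed without wild type replicate 1, knockout replicate 1, knockout replicate 2 and knockout replicate 3, respectively. C3, F5, F13b, Pzp and Orm1 kept their calls whichever library was left out. Itih4 (-1.13) lost its call without knockout replicate 1. Fetub (0.74) and Itih4 (-1.06) lost their calls without knockout replicate 2. Itih4 (-1.04) lost its call without knockout replicate 3.

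Apoptosis genes fell more often than they rose, 2 higher and 7 lower of 32, 2 and 9 without wild type replicate 3 and 1 and 5 in all 4 fits, with medians of -0.09, 0.00 and -0.10. Cflar, which restrains caspase 8, had 10.5, 8.79 and 9.71 FPKM in wild type against 5.48, 5.26 and 4.83 FPKM in the knockout (log2 fold change -0.84 ± 0.12 SE, adjusted p = 0.00797). Bax, which permeabilizes mitochondria, had 9.14, 9.38 and 7.61 FPKM in wild type and 15.6, 17.6 and 18.1 in the knockout (0.93 ± 0.13, adjusted p = 0.0075). Cflar was thus lower and Bax higher, each without overlap of the groups. Of the p53 and apoptosis genes, 4, 4, 3 and 3 passed without wild type replicate 1, knockout replicate 1, knockout replicate 2 and knockout replicate 3, respectively. The calls of Cflar and Bax held whichever library was left out.

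The title of the series names histone lysine methylation, and S-adenosylmethionine is the methyl donor of that reaction. Called chromatin genes were mostly lower, and their exons are long. Of 20 genes listed under H3K4 methyltransferases and core subunits 0 rose and 6 fell, 0 and 5 without wild type replicate 3. The counts were 1 and 2 with the length trend removed and 0 and 2 in all 4 fits, with medians of -0.23, -0.26 and -0.05. Listing a gene here does not establish H3K4 as its target. Ash1l had 3.64, 3.26 and 3.85 FPKM in the wild type libraries and 1.34, 1.71 and 1.79 FPKM in the knockout libraries (log2 fold change -0.95 ± 0.14 SE, adjusted p = 0.00811). Of 16 H3K9, H3K27 and H4K20 genes 0 rose and 2 fell, Setdb2 at 3.51, 3.64 and 7.66 FPKM in wild type against 1.37, 1.5 and 2.07 FPKM in the knockout (-1.27 ± 0.30) and Rbbp7 at 17, 17.5 and 17.5 FPKM in wild type and 13.5, 10.7 and 11.3 in the knockout (-0.54 ± 0.12), both in all 4 fits. Of 10 H3K36 and H3K79 genes Setd2 fell, with 4.71, 4.62 and 4.49 FPKM in the wild type libraries and 2.64, 2.49 and 2.86 FPKM in the knockout libraries (-0.69 ± 0.11), a call lost in the 6 libraries with the length trend removed. Of 21 demethylases 0 rose and 5 fell, 0 and 5 without wild type replicate 3, 0 and 1 with the length trend removed and 0 and 1 in all 4 fits, with medians of -0.34, -0.37 and -0.20 and a median exon length of 6954 bases. Kdm5c, an H3K4 demethylase on the X chromosome, had 8.74, 9 and 10.8 FPKM in wild type against 5.5, 5.58 and 5.55 FPKM in the knockout (-0.72 ± 0.12, adjusted p = 0.01). Kdm2a, an H3K36 demethylase, had 4.9, 5.66 and 4.13 FPKM in wild type and 2.17, 2.32 and 3.19 in the knockout (-0.82 ± 0.17), and was not called in the 6 libraries with the length trend removed. Wild type replicate 3, the library with Xist, was the highest for Kdm5c, at 10.8 FPKM against 8.74 and 8.996 in the other wild type libraries. Of the H3K4 genes, 2, 3, 3, 1 and 1 passed without wild type replicate 1, wild type replicate 2, knockout replicate 1, knockout replicate 2 and knockout replicate 3, respectively. Of the demethylases, 2, 2 and 1 passed without wild type replicate 1, knockout replicate 1 and knockout replicate 2, respectively. Ash1l, Setd2 and Kdm5c kept their calls whichever library was left out. Rbbp7 (-0.55) and Kdm2a (-0.82) lost their calls without wild type replicate 1. Rbbp7 (-0.53) lost its call without wild type replicate 2. Setdb2 (-1.18) and Kdm2a (-0.73) lost their calls without knockout replicate 1. Setdb2 (-1.23), Rbbp7 (-0.47) and Kdm2a (-0.77) lost their calls without knockout replicate 2. Rbbp7 (-0.51) lost its call without knockout replicate 3.

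Chromatin remodelling genes gave 0 higher and 7 lower of 26, 1 and 7 without wild type replicate 3, 2 and 3 with the length trend removed and 0 and 3 in all 4 fits, with medians of -0.38, -0.37 and -0.05. Chd1, a remodeller that binds methylated H3K4, had 4.81, 4.3 and 5.38 FPKM in the wild type libraries and 2.28, 1.85 and 1.92 FPKM in the knockout libraries (log2 fold change -1.08 ± 0.13 SE, adjusted p = 0.00676), Bptf, of the NURF complex, 2.57, 2.35 and 2.68 FPKM in wild type against 0.962, 1.07 and 1.24 FPKM in the knockout (-0.93 ± 0.13), and Arid1a, of the BAF complex, 3.68, 4.16 and 3.8 FPKM in wild type and 1.68, 1.97 and 2.06 in the knockout (-0.87 ± 0.12). These 3 fell in all 4 fits although the median of their list approached 0 once the length trend was removed. Acetyltransferases, deacetylases and cofactors gave 3 higher and 11 lower of 39, 3 and 13 without wild type replicate 3, 3 and 3 with the length trend removed and 3 and 2 in all 4 fits. Kat7, a histone acetyltransferase, had 4.01, 4.41 and 4.35 FPKM in the wild type libraries and 2.58, 2.3 and 2.11 FPKM in the knockout libraries (-0.75 ± 0.12, adjusted p = 0.0091), and Ep300, another, 3.31, 3.17 and 3.09 FPKM in wild type against 1.76, 1.66 and 2.06 FPKM in the knockout (-0.67 ± 0.12), with the call of Ep300 lost when the length trend was removed. Of 17 DNA and arginine methylation genes 1 rose, Prmt1 at 3.91, 4.05 and 3.21 FPKM in wild type and 5.64, 5.51 and 5.06 in the knockout (0.49 ± 0.13), which was not called in all 4 fits. Of the remodelling genes, 4, 3 and 4 passed without wild type replicate 1, knockout replicate 2 and knockout replicate 3, respectively. Of the cofactor genes, 8, 9, 5 and 5 passed without wild type replicate 1, knockout replicate 1, knockout replicate 2 and knockout replicate 3, respectively. The calls of Chd1, Bptf, Arid1a and Kat7 held whichever library was left out. Prmt1 (0.52) lost its call without wild type replicate 1. Prmt1 (0.46) lost its call without knockout replicate 1. Ep300 (-0.62) and Prmt1 (0.47) lost their calls without knockout replicate 2. Prmt1 (0.53) lost its call without knockout replicate 3.

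Nuclear noncoding RNAs with a long annotated exon length rose, opposite to the length trend. That length joins all exons of a gene. Which isoforms the reads from poly-T selected RNA came from was not tested, so the RNA measured may be shorter. Neat1, the scaffold of paraspeckles, with an exon length of 20771 bases, had 1.74, 1.9 and 1.67 FPKM in the wild type libraries and 4.74, 7.53 and 7.21 FPKM in the knockout libraries (log2 fold change 1.60 ± 0.18 SE, adjusted p = 0.00676). Malat1, the RNA of nuclear speckles, with 6983 bases, had 21.3, 18.1 and 16.7 FPKM in wild type against 37.1, 74.5 and 88.5 FPKM in the knockout (1.72 ± 0.32, adjusted p = 0.0135). Snhg11, a host gene of small nucleolar RNAs, had 0.283, 0.215 and 0.0324 FPKM in wild type and 1.01, 1.29 and 2.77 in the knockout (1.63 ± 0.33), from 71 reads in wild type and 624 in the knockout. The lowest knockout library was above the highest wild type library in each. Of 17 nuclear RNAs and paraspeckle proteins 4 rose and 1 fell, 5 and 1 without wild type replicate 3, 6 and 0 with the length trend removed and 4 and 0 in all 4 fits, with medians of 0.30, 0.27 and 0.34 and -0.11 under TPM, which is 0.25 above the median of all genes. Core spliceosome and SR protein genes gave 10 higher and 1 lower of 41, 13 and 1 without wild type replicate 3, 11 and 1 with the length trend removed and 7 and 0 in all 4 fits, with medians of 0.23, 0.32 and 0.34 and -0.15 under TPM, which is 0.21 above the median of all genes. Snrpd2, of the Sm ring, had 8.08, 9.02 and 6.36 FPKM in the wild type libraries and 20.4, 22.1 and 18.1 FPKM in the knockout libraries (1.32 ± 0.16, adjusted p = 0.00676), and Snrnp70, of the U1 particle, 4.33, 5.22 and 5.33 FPKM in wild type against 7.1, 8.71 and 10.1 FPKM in the knockout (0.74 ± 0.16). The splicing list has a median exon length of 5775 bases, in the long class. Of the nuclear RNA and paraspeckle genes, 3, 1 and 3 passed without wild type replicate 1, knockout replicate 2 and knockout replicate 3, respectively. Of the splicing genes, 2, 7, 1 and 4 passed without wild type replicate 1, wild type replicate 2, knockout replicate 2 and knockout replicate 3, respectively. Neat1 and Snrpd2 kept their calls whichever library was left out. Snrnp70 (0.65) lost its call without wild type replicate 1. Malat1 (1.60), Snhg11 (1.73) and Snrnp70 (0.72) lost their calls without knockout replicate 2. Snrnp70 (0.62) lost its call without knockout replicate 3.

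Metal genes fell more often than they rose. Of 17 genes of metallothioneins, zinc and copper 1 rose and 7 fell, 2 and 8 without wild type replicate 3, 1 and 4 with the length trend removed and 1 and 4 in all 4 fits, with medians of -0.58, -0.37 and -0.37. Mtf1, the zinc-sensing transcription factor, had 2.34, 2.2 and 2 FPKM in wild type and 0.989, 0.942 and 1.09 in the knockout (log2 fold change -0.83 ± 0.13 SE, adjusted p = 0.00881), and Slc39a8, a zinc and manganese importer, 4.51, 5.29 and 5.42 FPKM in the wild type libraries and 2.73, 2.5 and 2.13 FPKM in the knockout libraries (-0.92 ± 0.13, adjusted p = 0.00823). Commd1, a copper handling protein, had 1.41, 1.44 and 1.54 FPKM in wild type against 2.68, 3.17 and 2.66 FPKM in the knockout (0.76 ± 0.12), the 1 rise. Iron and heme genes gave 6 higher and 3 lower of 34, 9 and 8 without wild type replicate 3 and 5 and 2 in all 4 fits. Alad, the second enzyme of heme synthesis, had 47.8, 48.4 and 49.9 FPKM in wild type and 80.4, 94.7 and 96.7 in the knockout (0.88 ± 0.12, adjusted p = 0.0076). Ncoa4, the receptor for ferritin turnover, had 10.03, 7.79 and 11.8 FPKM in the wild type libraries and 4.25, 2.54 and 4.09 FPKM in the knockout libraries (-1.34 ± 0.22), and Bmp6, the iron signal to hepatocytes that endothelial cells make, 1.5, 1.68 and 2.18 FPKM in wild type against 0.588, 0.813 and 0.568 FPKM in the knockout (-0.98 ± 0.17). Of the metal genes, 4, 5, 2 and 3 passed without wild type replicate 1, knockout replicate 1, knockout replicate 2 and knockout replicate 3, respectively. Of the iron and heme genes, 4, 4 and 4 passed without wild type replicate 1, knockout replicate 2 and knockout replicate 3, respectively. The calls of Mtf1, Slc39a8, Alad, Ncoa4 and Bmp6 held whichever library was left out. Commd1 (0.69) lost its call without knockout replicate 2.

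Lysosome and autophagy genes gave 2 higher and 6 lower of 40, 2 and 10 without wild type replicate 3, 5 and 4 with the length trend removed and 0 and 4 in all 4 fits, with medians of -0.05, -0.14 and -0.01. Atg9a, the lipid scramblase of autophagosome growth, had 6.64, 5.32 and 5.65 FPKM in wild type and 2.34, 1.83 and 1.7 in the knockout (log2 fold change -1.38 ± 0.15 SE, adjusted p = 0.00676). Lipa, lysosomal acid lipase, had 78.7, 83.9 and 90.8 FPKM in the wild type libraries and 44.8, 40.5 and 47 FPKM in the knockout libraries (-0.93 ± 0.12, adjusted p = 0.00698), and Ulk1, the kinase that starts autophagy, 13.7, 12.5 and 20.1 FPKM in wild type against 6.34, 7.76 and 7.61 FPKM in the knockout (-1.02 ± 0.19). All 3 were lower in each knockout library. Of the lysosome and autophagy genes, 5, 4, 2 and 5 passed without wild type replicate 1, knockout replicate 1, knockout replicate 2 and knockout replicate 3, respectively. Atg9a and Lipa kept their calls whichever library was left out. Ulk1 (-1.07) lost its call without knockout replicate 2.

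Major urinary protein genes, which growth hormone pulses raise in males, followed wild type replicate 3. Of 20 tested genes 3 rose and 0 fell in the 6 libraries, with a median log2 fold change of 3.81, and 14 rose and 0 fell without that library, with a median of 1.81. The size of the rise was thus smaller and the number of calls larger when the library that lacks Y-linked reads was left out. Cish, a growth hormone target, had 0.93, 0.886 and 0.68 FPKM in wild type and 4.95, 4.4 and 1.43 in the knockout (log2 fold change 1.49 ± 0.39 SE, adjusted p = 0.0348), and Jak2, the kinase of its receptor, 3.55, 3.87 and 3.78 FPKM in the wild type libraries and 2.31, 1.88 and 2.46 FPKM in the knockout libraries (-0.65 ± 0.13, adjusted p = 0.0156). In the 6 libraries these were the 2 called of 18 genes of the growth hormone and IGF1 axis, which gave 2 and 4 without wild type replicate 3. Of the major urinary protein genes, 1 and 1 passed without knockout replicate 2 and knockout replicate 3, respectively. Cish (1.54) lost its call without wild type replicate 1. Cish (1.52) lost its call without wild type replicate 2. Cish (1.21) lost its call without knockout replicate 1. Cish (1.29) and Jak2 (-0.55) lost their calls without knockout replicate 2.

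Markers of the other cells of liver were low beside those of hepatocytes. Kupffer cell and macrophage markers summed to 311 to 362 FPKM in wild type and 228 to 287 FPKM in the knockout, with 0 of 18 at 0 in all libraries. Of 15 tested 0 rose and 2 fell, and 0 and 3 without wild type replicate 3. Cd5l, a secreted macrophage protein, had 42.5, 49.2 and 44.8 FPKM in wild type against 26.4, 22.1 and 21.7 FPKM in the knockout (log2 fold change -0.95 ± 0.13 SE, adjusted p = 0.00745), and Adgre1, the F4/80 antigen, 3.67, 8.62 and 8.13 FPKM in wild type and 2.35, 1.37 and 1.31 in the knockout (-1.70 ± 0.34, adjusted p = 0.0164). In bulk liver, fewer macrophages and less of these transcripts per macrophage cannot be told apart. Stellate cell and matrix markers summed to 48.9 to 165 FPKM in wild type, 48.9 and 98.0 without replicate 3, and to 103 to 146 FPKM in the knockout. Of 17 tested 0 were called in limma in the 6 libraries, and 4 rose and 0 fell without wild type replicate 3, with medians of 0.41, 0.57 and 0.48. Endothelial markers summed to 92.4 to 174 and 74.1 to 95.7 FPKM, and 1 of 18 fell, Kdr at 3.64, 4.56 and 6.4 FPKM in the wild type libraries and 2.84, 2.55 and 2.16 FPKM in the knockout libraries (-0.80 ± 0.20), a call lost with the length trend removed; the list gave 1 and 2 without wild type replicate 3. Cholangiocyte markers summed to 58.9 to 104 and 47.3 to 74.7 FPKM, and 3 of 7 fell, as without wild type replicate 3, with Aqp1 at 28.4, 39.4 and 49.9 FPKM in wild type against 20.2, 21.6 and 17.4 FPKM in the knockout (-0.94 ± 0.21). Markers of neutrophils, T cells and B cells summed to at most 27.2 FPKM in any library, and red cell markers to 28.4 to 318 FPKM in wild type and 61.4 to 115.5 FPKM in the knockout. None of the neutrophil, T and NK, B, red cell or adipocyte markers tested in limma was called in the 6 libraries, and Mpo and Lep were at 0 in all 6 libraries. Pancreatic acinar markers summed to 6.05 to 7.34 FPKM in wild type and 12.01 to 15.03 FPKM in the knockout, with 9 of 14 at 0 in all libraries, and the elastase Cela1 had 6.41, 6.07 and 5.54 FPKM in wild type and 12.3, 14.5 and 11.9 in the knockout (1.03 ± 0.12), a rise called in all 4 fits. Cela1 made up most of the acinar sum in each library. The other of the 2 tested, Cela2a, went the other way, at -0.77 to -0.30 with 1 library left out, and was not called in the 6 libraries. Muscle and gut markers summed to 23.3 to 39.1 and 42.6 to 53.5 FPKM, with 3 of 12 at 0 and 0 of 2 tested called in limma. The groups did not overlap in either sum, and the part of such cells in other results was not tested. Of the Kupffer markers, 4, 1 and 1 passed without wild type replicate 2, knockout replicate 2 and knockout replicate 3, respectively. Of the cholangiocyte markers, 1, 1, 1, 0 and 1 passed without wild type replicate 1, wild type replicate 2, knockout replicate 1, knockout replicate 2 and knockout replicate 3, respectively. Cd5l and Cela1 kept their calls whichever library was left out. Kdr (-0.83) and Aqp1 (-0.92) lost their calls without wild type replicate 2. Kdr (-0.88) and Aqp1 (-0.96) lost their calls without knockout replicate 1. Adgre1 (-1.60), Kdr (-0.81) and Aqp1 (-1.01) lost their calls without knockout replicate 2. Adgre1 (-1.58), Kdr (-0.72) and Aqp1 (-0.86) lost their calls without knockout replicate 3.

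Genes close to Cth were also examined, since knockout and wild type mice can differ in the chromosome segment around the altered gene. Of 21 tested genes within 10 Mb of it on chromosome 3, 1 rose and 4 fell, and 2 and 5 without wild type replicate 3, near the share of all genes called. Their median log2 fold changes were -0.19, -0.22 and -0.07.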

How the data were processed

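RNA-seq was made from poly-T selected mRNA of mouse liver, per the labels' protocols. Values are FPKM per gene as the authors deposited them; the submitters' processing notes name HISAT2 2.0.5, featureCounts 1.5.0-p3, DESeq2 1.16.1 and mm10, with no role or order. Whether counting used strand is not given in the sources used here. Genes averaging 0.5 FPKM or more across the 6 libraries were tested on log2(FPKM + 0.5) with limma 3.58.1 (moderated, with trend and robust settings) in R 4.3.3, and p-values were adjusted over all genes tested. The length trend was removed per library by lowess (span 0.3) on log10 exon length from GENCODE M21 (GRCm38). Reads were recovered from FPKM and exon length; 98.3% to 98.6% of values of up to 20 reads were whole within 0.05. No count test was run on them. The fits were tested on simulated data.

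The 71 gene lists and the members were chosen with earlier results of these data known. Named genes are Cth, the 12 largest rises and falls called with and without wild type replicate 3, without overlap and averaging 1 FPKM or more in a group (predicted models and pseudogenes left out), and up to 5 called members of each list by p. Alternatives tried were the scaling, pseudocount, filter, a replicate block, all 9 libraries and each library left out.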

Additional observations from a re-analysis of the deposited data

How the results depend on the processing

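Leaving out 1 library gave 688 to 3415 called genes in the 6-library comparison, and 26 to 2491 with the length trend removed. The leave-one-out fits with the length trend removed were chosen after seeing the data, except the one without wild type replicate 3. Rescaling to TPM gave 4347 calls, 568 of them higher (13.1%, against 50.2% on the deposited scale), and read totals gave 3185, 1117 of them higher (35.1%). With no filter on low values 1679 genes were called, and 1611 without wild type replicate 3, with 24283 genes tested. The cause of these differences was not tested. The other pseudocounts, a minimum of 1 FPKM, quantile normalization, all 9 libraries in one fit and limma without trend and robust settings gave 2756 to 3048 calls. Same-numbered libraries correlated at 0.077, 0.094 and 0.050 after removal of group means, each library best with its own number, which is a hint from the data and not from the design; the replicate block gave 2468 calls. Cth kept its direction and call in every alternative run, at -8.72 to -7.37. Single genes with few reads are limited by counting error as well as by the 3 libraries a group.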
